A study of Mus musculus with 9 samples.

Results

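Tumours from mice given a herb pair were compared with healthy colon by RNA sequencing, over 3 tumour and 3 colon libraries of a series of 9, and over the 54446 features with an Ensembl mouse gene identifier among the 56398 features counted. The members were taken by label: the libraries of the AC group and those of the sham group, with no library of the untreated tumour group. CT26 is a BALB/c colon carcinoma cell line that grows as a tumour when it is put into mice of the same strain. The AC group was tumour tissue, labelled as colon tumour, from BALB/c mice that had been injected with CT26 cells and then received Astragalus and Curcuma phaeocaulis Valeton in a ratio of 2 to 1, at 6 g/kg and 1 dose a day. The sham group was healthy colon of BALB/c mice under a sham treatment. The sources used here give neither what the sham treatment was nor the site of injection, the length of treatment or the age and sex of the mice. Every treated sample was a tumour and every control sample was colon, so effects of tumour, of tissue and of the herbs cannot be told apart in this comparison. Whether the 3 samples of a group stem from 3 mice is not stated. The p-values therefore reflect only how far these samples spread, and that spread may be technical.

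The lining of the healthy colon is a single sheet of epithelial cells. Absorptive colonocytes take up salt, water and short chain fatty acids, goblet cells secrete mucus, and stem cells at the crypt base renew the sheet, while smooth muscle, nerves and lymphoid follicles lie beneath it. A transplanted carcinoma is a mass of dividing cells that holds vessels, fibroblasts and immune cells of the host. Astragalus and Curcuma are herbs of traditional Chinese medicine that are often prescribed together.

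Total counts ran from 16078471 to 19932103 in the sham libraries and from 15690038 to 17900328 in the AC libraries, with 24356 to 26515 features detected. Mitochondrially encoded transcripts took 7.01 to 8.63% of the counts in sham and 2.39 to 2.65% in AC, and the 100 most counted genes took 27.35 to 29% and 16.11 to 16.43%. The first principal component held 89.7% of the variance and parted the groups. In the second (5.7%) sham 1 stood apart from sham 2 and sham 3, and in the third (3.1%) AC 3 stood apart from AC 1 and AC 2. Levels are given as CPM, a count relative to the size of its library after scaling by TMM (a method that assumes most genes do not change), always for libraries 1, 2 and 3 in that order. A change is a log2 fold change, AC minus sham, with its standard error after the ± sign. Each adjusted p comes from edgeR's quasi-likelihood test with Benjamini-Hochberg adjustment over all features tested, and a gene was called when it was under 0.05.

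The tissue labels were checked against marker genes. Epcam, an adhesion protein of all intestinal epithelium, read 2872, 2632 and 2543 CPM in sham and 0.877, 0.505 and 65.5 CPM in AC. Cdx2, the transcription factor that specifies intestine, read 334, 403 and 405 CPM in sham and 0.175, 0 and 7.37 CPM in AC. By these genes, the word colon in the AC label was not matched in AC 1 and AC 2, where both were near 0. AC 3 carried them at a low level. Other epithelial genes kept more in AC 1 and AC 2, such as Krt20, Klf4 and Ceacam1, given below. The 16 brush border genes tested summed to 346.2, 309.4 and 790.5 CPM in AC, against 18360, 22440 and 22550 CPM in sham. Ms4a1, the B cell antigen CD20, read 299.7, 28.4 and 11.9 CPM in sham, and Myh11, the myosin of smooth muscle, 44.1, 448 and 489.7 CPM. So sham 1 held far more B cell and far less muscle transcript than sham 2 and sham 3. In whole tissue, fewer cells of a type and less RNA per cell cannot be told apart. By a chi-square test of counts over genes, divided by its degrees of freedom, sham 2 and sham 3 differed by 2.88, where sampling noise alone gives 1, against 88.64 and 104.67 for sham 1 with each of them and 9.19 to 25.41 between tumours. The labels do not say whether sham 2 and sham 3 come from separate mice, so the spread in fits without sham 1 rests for colon on this close pair. Counts of calls that moved by over 1.5 times without sham 1 or AC 3 are given below, as are the list medians that moved most.

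Of 16849 Ensembl genes that passed the filter on low counts, 5793 were called higher in AC tumours (34.4%) and 5532 lower (32.8%), so that 67.2% were called in all. The groups did not overlap in 75.1% of genes. The median log2 fold change was 0.06. A call alone thus says little about a gene here, and sizes carry more. Among the called genes, 4749 were higher and 4524 lower by a log2 fold change of 1 or more, and 139 and 143 by 8 or more. A count of 0 in all sham libraries with a mean of at least 1 CPM in AC occurred for 131 called genes, and the reverse for 91. Over all 17832 features tested the calls were 6339 higher and 5826 lower, and 52.1% of them were higher, while the groups did not overlap in 75.8% of features. The share of higher calls rose to 68.2% when libraries were scaled by their totals alone, a setting that moved the median of all features by 0.65 on the log2 scale. It was 49.4% with RLE factors and 54.2% with upper-quartile factors. Directions of small changes below are relative to TMM scaling. Of the genes named, those that turned under scaling by totals are given, but list members that are not named turned too. On the deposited FPKM values, limma on log2(FPKM + 1) gave the same direction for 5793 of the 5793 higher calls and 5147 of the 5532 lower calls, and 5776 and 3834 of these passed its threshold. These FPKM values carry no TMM factor, and their changes lay higher by a median of 0.58, much as with scaling by totals. That scaling kept 5793 higher and 3851 lower calls. The upward shift favours higher calls, so their full agreement on FPKM is no separate check.

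**Figure D1:**
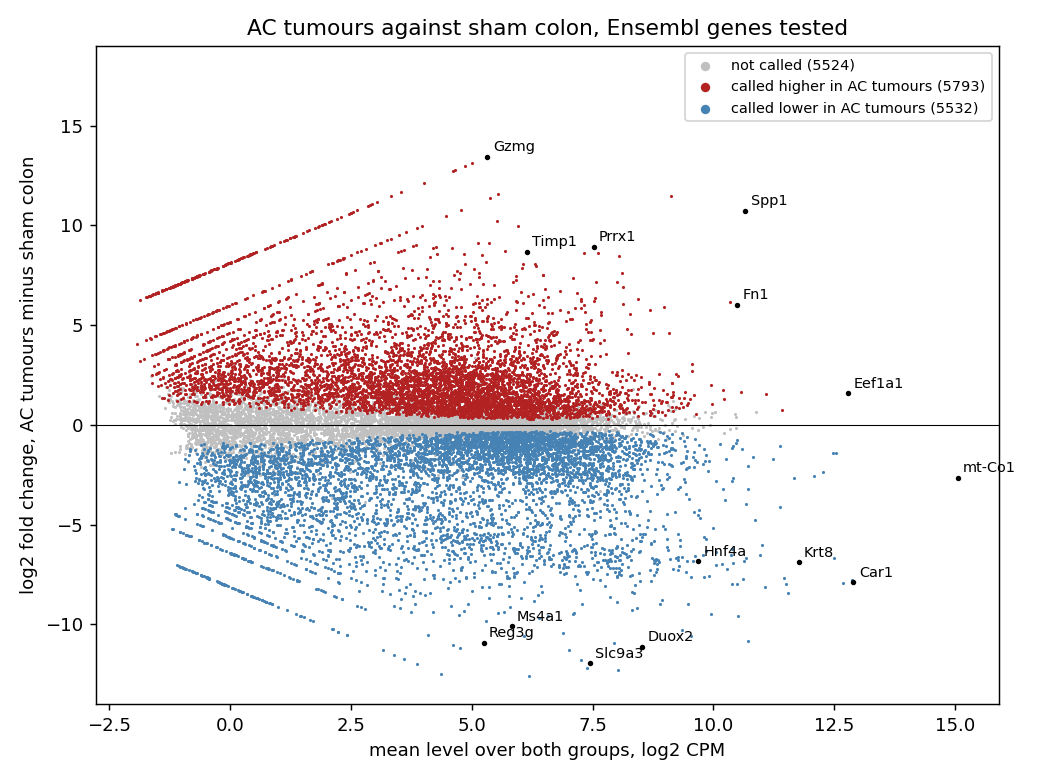
Log2 fold change (AC tumours minus sham colon, vertical axis) against mean level over both groups in log2 CPM (horizontal axis) for the 16849 Ensembl genes tested; red points were called higher (5793), blue points lower (5532), and grey points were not called. Black points are labelled examples; Spp1 lies near the top and Slc9a3 near the bottom at high levels, and the slanted lines at the left are genes with few or no counts in 1 group.

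Of the 12 genes with the largest rises, the one with the highest level was Spp1 (chromosome 5, 104435118 to 104441050, GRCm38), which encodes osteopontin, a secreted matrix and immune protein. It read 1.59, 1.99 and 2.05 CPM in sham and 2633, 3273 and 3776 CPM in AC. Its change was 10.74 ± 0.29, adjusted p = 2.16e-05. The colon libraries held almost no Spp1 transcript and all 3 tumours held it among their most counted genes. Gzmg, Gzme, Gzmf and Gzmd, granzymes of a gene cluster on chromosome 14, were among the 12 largest rises and are described with the cytotoxic genes. Klk10, a secreted kallikrein protease, had 0 counts in sham and read 48.9, 68.4 and 34.1 CPM in AC, a level at least 237-fold higher than the floor of 3 counts per library. Irx2, an Iroquois homeobox factor, went from 0 counts to 21.5, 21.9 and 26.6 CPM, at least 109-fold higher. These genes were undetected in colon and present in each tumour. Cldn6, a claudin of embryonic epithelia, had 1 count in the 3 sham libraries and read 72.5, 60.9 and 29.97 CPM in AC, a ratio of pooled counts of 2350-fold (95% counting interval 421 to 92700). Lypd5 had 0 counts in sham and 21.1, 17.6 and 7.32 CPM in AC, at least 71.7-fold higher. The non-coding RNA Lncenc1 and the Fc receptor-like gene Fcrl6 were also among the 12, at least 302-fold and at least 58.1-fold higher.

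The 12 largest falls included transporter and oxidase genes of colonocytes. Duox2, the oxidase that makes hydrogen peroxide at the mucosal surface, read 705, 753 and 757 CPM in sham and 0.0877, 0.253 and 0.66 CPM in AC, a change of -11.11 ± 0.70, adjusted p = 5.92e-05. Its maturation factor Duoxa2 read 122, 155 and 157 CPM and 0, 0.0505 and 0 CPM; its exons overlap those of Duoxa1 over 42.8% of their length, so its count is uncertain. Slc9a3, the sodium-proton exchanger of the apical membrane, read 219, 407 and 414 CPM in sham and 0.0439, 0 and 0.203 CPM in AC, a change of -11.95 ± 0.75, adjusted p = 5.87e-05. Each AC library lay below every sham library for these genes, which their choice required, because only genes without overlap of the groups were ranked. Slc10a2, the bile acid transporter of the intestine, read 181, 357 and 379 CPM in sham and 0.0439, 0 and 0.203 CPM in AC (-11.77 ± 0.76, adjusted p = 6.28e-05). Trpv6, the apical calcium channel, had 0 counts in AC and 5.97, 25.6 and 21.9 CPM in sham, at least 123-fold lower. Adamts18 was likewise absent from AC and at least 166-fold lower. Gal3st2, a mucin sulfotransferase, had 0 counts in AC against 38.4, 25.5 and 23.1 CPM, at least 200-fold lower. Gstm3, Clca4b and Sprr2a2 also stood among the 12, but each belongs to a family of close copies and its level is uncertain, as is that of Prap1, which overlaps Fuom over 27.3% of its exons. Cfap65, a gene of cilia, completed them with a ratio of 3430-fold (95% counting interval 616 to 136000).

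In reads, a scale that favours long genes, the 8 largest rises included translation factors, matrix genes and a chaperone. Eef1a1, the elongation factor that brings tRNA to the ribosome, read 3887, 3342 and 3364 CPM in sham and 9957, 10430 and 11410 CPM in AC (1.59 ± 0.15, adjusted p = 0.00021). Its partner factor Eef2 read 719, 1332 and 1299 CPM and 2948, 3439 and 3325 CPM (1.54 ± 0.26, adjusted p = 0.00239). Hsp90ab1, a cytosolic chaperone, and Pabpc1, the poly(A) binding protein, changed by 1.66 and 1.75. Ahnak (a large scaffold protein) rose by 0.77 on the log2 scale. The 8 largest losses in reads included mitochondrial and epithelial genes. The respiratory subunit mt-Co1 read 60140, 56930 and 59210 CPM in sham and 8873, 9206 and 10280 CPM in AC (-2.64 ± 0.14, adjusted p = 4.55e-05). Lypd8, which keeps flagellated bacteria from the mucosa, read 13560, 15580 and 15610 CPM in sham and 3.64, 1.72 and 200.3 CPM in AC (-7.77 ± 2.10, adjusted p = 0.016). Ceacam1, an adhesion protein of the brush border, read 8516, 12750 and 13270 CPM and 44.2, 43.6 and 257 CPM (-6.65 ± 0.92, adjusted p = 0.000997). Dmbt1 (a secreted mucin-like defence protein) and Krt8 (a keratin of simple epithelia) fell by 7.93 and 6.89 on the log2 scale. Only genes without overlap of the groups were ranked, so the lack of overlap here was given by the choice. AC 3 was the highest tumour for Lypd8 and Ceacam1. Emp1, an epithelial membrane protein, kept more of its level, with 6816, 7578 and 7902 CPM in sham and 1139, 1195 and 1441 CPM in AC (-2.56 ± 0.17, adjusted p = 6.37e-05).

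The genes were then read in 50 lists of 923 entries (911 distinct genes, of which 820 were tested and 2 were not in the table). Counts of a list are to be read against the 34.4% higher and 32.8% lower of all genes, and no list was tested as a set. With all 6 libraries the lists of lowest median were mucosal antimicrobial defence (-7.77), brush border (-6.87), B cell follicle (-6.36) and colonocyte transport (-6.24). Those of highest median were cytotoxic granule genes (6.85), mesenchymal regulators (5.41), neutrophils and mast cells (3.22) and macrophage identity (3.16). The neutrophil and mast cell list held large changes in both directions, and its mean level overlapped between the groups. The order depended on single libraries. Without AC 3 the medians were -10.89 for antimicrobial defence, -10.75 for brush border, -9.51 for epithelial factors, -9.28 for junctions, -8.65 for goblet cells, -7.80 for transport and -7.77 for the guanylin axis, against -6.59 for the B cell follicle, and the red cell list (3.58) passed those of macrophages and of neutrophils and mast cells. Without sham 1 the median was -4.35 for the B cell follicle, -0.75 for dendritic cells and MHC class II (-1.2 with all libraries) and 1.04 for checkpoint genes (0.31 with all libraries).

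**Figure D2:**
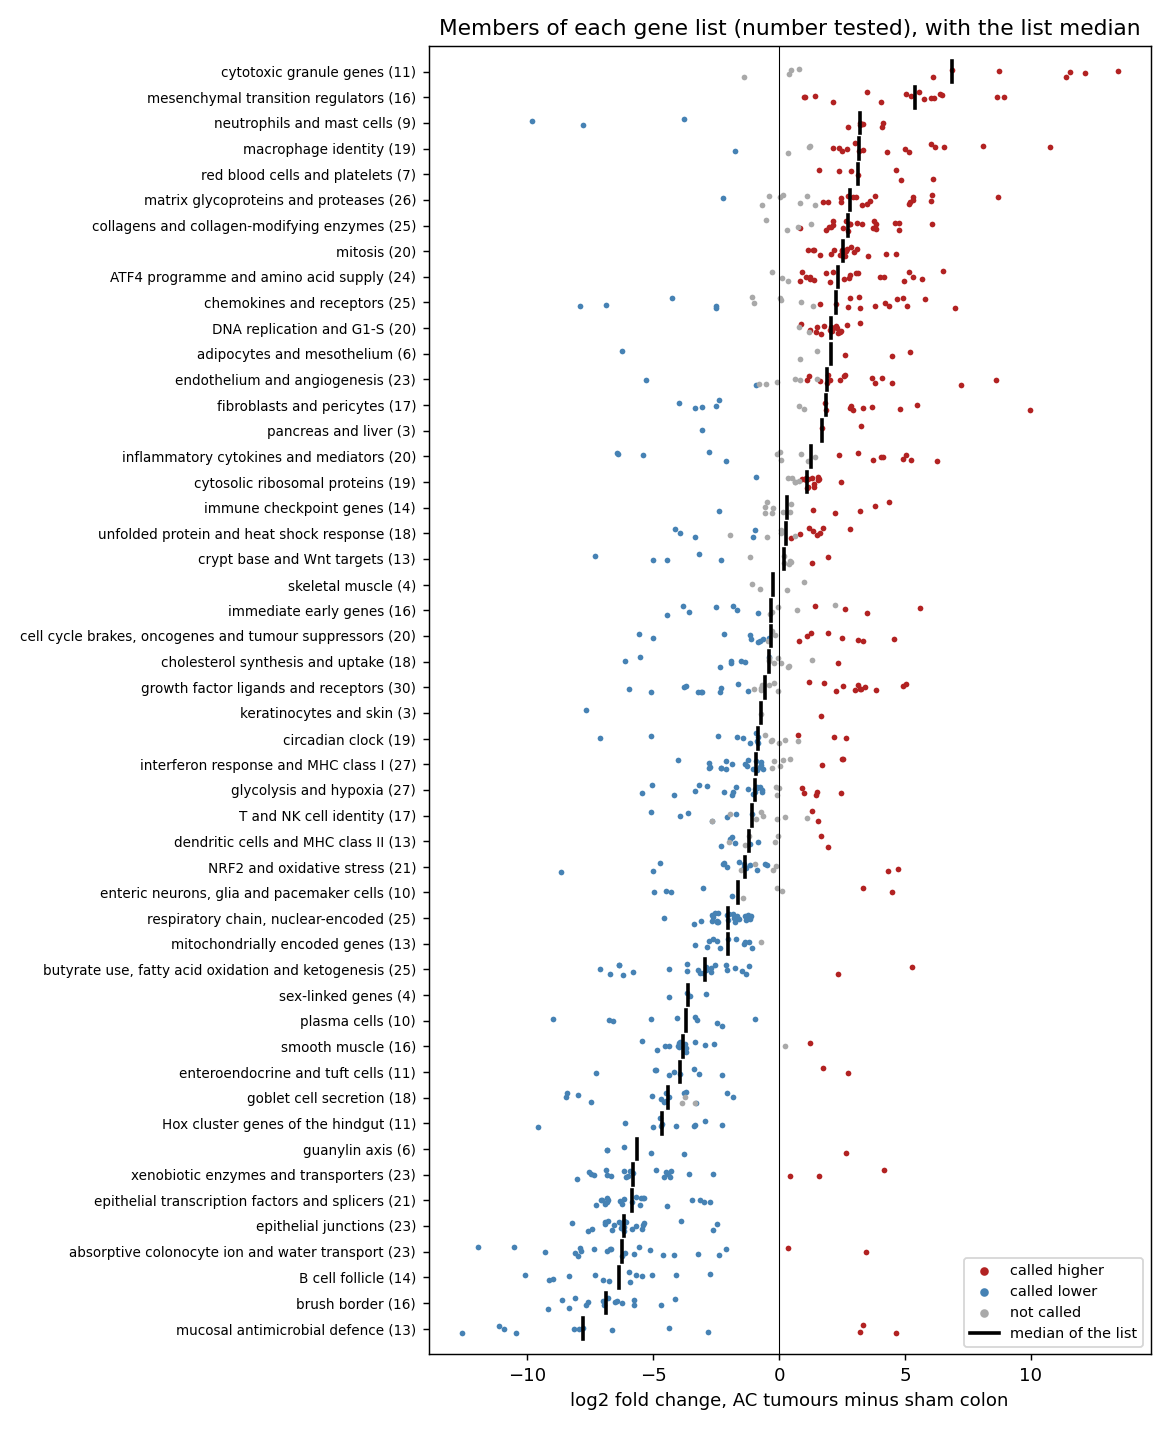
Log2 fold change (AC tumours minus sham colon, horizontal axis) of every tested member of each gene list with at least 3 tested members (vertical axis, number tested in parentheses); red points were called higher, blue lower, grey not called, and black bars are list medians. Epithelial lists lie at the left, with medians down to -7.77, and cytotoxic and mesenchymal lists at the right, with medians up to 6.85.

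Colonocytes move sodium, chloride, bicarbonate and water through paired transporters, and these genes were nearly all lower in AC tumours. Of the transport list, 23 of 26 genes were tested, 21 were called lower and 2 higher, with a median of -6.24. Slc26a3, the chloride-bicarbonate exchanger, read 2598, 3498 and 3624 CPM in sham and 1.8, 0.353 and 93.9 CPM in AC (-6.66 ± 2.09, adjusted p = 0.0282). Aqp8, a water channel, read 1855, 3045 and 3065 CPM and 16.98, 6.36 and 8.33 CPM (-7.97 ± 0.55, adjusted p = 7.20e-05). Car1, a cytosolic carbonic anhydrase, read 9493, 17870 and 18320 CPM and 3.95, 2.17 and 186 CPM (-7.89 ± 2.05, adjusted p = 0.0138). For Slc26a3 and Car1 the third tumour held most of what was left, whereas Aqp8 was low in all 3. Car4, the anhydrase on the apical surface, read 512, 698 and 697 CPM and 1.8, 0.556 and 0.66 CPM (-9.28 ± 0.59, adjusted p = 5.92e-05). Slc51b, a subunit of the basolateral bile acid exporter, fell from 31.2, 35.8 and 34.7 CPM to 1 count in the 3 tumours, a ratio of 2120-fold (95% counting interval 379 to 83600). Cftr, the chloride channel, read 97.99, 109.5 and 118 CPM and 0, 0 and 1.22 CPM (-8.08 ± 1.16, adjusted p = 0.00124). Atp1b1, the beta chain of the sodium pump, went from 1228, 1461 and 1464 CPM to 2.98, 1.57 and 32.1 CPM (-6.82 ± 1.34, adjusted p = 0.00442). The members called higher were Kcnn4, a calcium-activated potassium channel of epithelial and blood cells, with 11.7, 6.79 and 6.99 CPM and 101, 102 and 80.3 CPM (3.47 ± 0.27, adjusted p = 0.000108), and the cotransporter Slc12a2 (0.34 ± 0.11, adjusted p = 0.0282). Without sham 1 the called falls were 17, and without both sham 1 and AC 3 they were 21. List levels, as the mean of log2(CPM + 0.5), were 7.5, 8.09 and 8.13 in sham and 1.88, 1.56 and 3.42 in AC.

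The guanylin peptides act on a receptor cyclase of the apical membrane and set chloride and water secretion. Guca2a, guanylin, read 1448, 1610 and 1480 CPM in sham and 0.439, 0.151 and 39.02 CPM in AC (-6.84 ± 2.10, adjusted p = 0.0261). Guca2b, uroguanylin, read 32.1, 22.5 and 21.2 CPM and 0, 0 and 0.66 CPM (-6.84 ± 1.09, adjusted p = 0.00175), and their receptor Gucy2c 339, 566 and 600.5 CPM and 0.483, 0.202 and 20.6 CPM (-6.15 ± 1.76, adjusted p = 0.02). Guca2a and Gucy2c were low in AC 1 and AC 2 and present in AC 3, whereas Guca2b read at most 0.66 CPM in every tumour. Prkg2, the cGMP-dependent kinase downstream of the receptor, moved the other way, with 51.1, 78.7 and 79.6 CPM in sham and 353, 463 and 525 CPM in AC (2.68 ± 0.25, adjusted p = 0.000216). Slc9a3r1 (a scaffold of apical transporters) fell by 5.09 on the log2 scale. Of the 6 tested genes of this axis 5 fell and 1 rose; the falls called were 3 without sham 1, without sham 3 or with no filter on low counts. In the brush border, the carpet of microvilli, all 16 tested genes fell, with a median of -6.87. Vil1, the actin bundler villin, read 1302, 2210 and 2248 CPM and 0.702, 0.404 and 29.3 CPM (-7.57 ± 1.89, adjusted p = 0.0119). Mep1b, a meprin protease subunit, read 733, 651 and 667 CPM and 0.0877, 0.151 and 3.3 CPM (-9.18 ± 1.47, adjusted p = 0.00192). Krt20, a keratin of mature colonocytes, kept the most, with 4576, 5211 and 5337 CPM in sham and 249.7, 234 and 377 CPM in AC (-4.13 ± 0.25, adjusted p = 5.44e-05). Myo1a (a myosin of microvilli), Cdhr5 (a protocadherin of microvilli), Plac8 (a small epithelial and immune protein) and Cdh17 (the intestinal cadherin) fell by 5.74, 6.78, 4.68 and 6.96 on the log2 scale. Without sham 1 the brush border falls called were 9 of 16, with no filter on low counts 10, and without both sham 1 and AC 3 all 16. The list level was 9.15, 9.66 and 9.69 in sham and 1.14, 1 and 4.11 in AC, with AC 3 above the other tumours and below every colon library.

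Most goblet cell genes fell. Of 18 tested genes 15 were called lower, with a median of -4.42. Muc2, the gel-forming mucin of the colon, read 258, 424 and 424 CPM in sham and 2.5, 0.404 and 81.1 CPM in AC, and was not called (-3.72 ± 1.70, adjusted p = 0.0934). Fcgbp, a mucus protein bound to it, read 259, 419 and 417 CPM and 1.8, 0.0505 and 107 CPM and was not called (-3.33 ± 1.93, adjusted p = 0.168), and neither was Bcas1 (adjusted p = 0.0511). In each case AC 3 held transcript that AC 1 and AC 2 lacked. Muc13 and Muc3, transmembrane mucins of the cell surface, were called lower, with changes of -7.98 and -8.43. Retnlb, a goblet cell protein against bacteria, read 193, 257 and 266 CPM and 0.175, 0 and 3.91 CPM (-7.46 ± 1.44, adjusted p = 0.0041). Fut2, which fucosylates mucins, read 439.5, 749 and 763 CPM and 1.45, 1.01 and 3.15 CPM (-8.44 ± 0.59, adjusted p = 7.68e-05). Tff3 (a trefoil peptide), St6galnac6 (a sialyltransferase) and Galnt12 (which starts mucin glycans) fell by 4.36, 4.47 and 3.31 on the log2 scale. The goblet falls called were 8 without sham 1 and 9 with no filter on low counts. Without AC 3 they were all 18, with a median of -8.65.

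Rare epithelial cells and surface defence followed the same direction. Of the 11 enteroendocrine and tuft cell genes tested (of 15 listed), 9 fell and 2 rose, with a median of -3.94, or -3.36 with genes at 0 set to their bound. Chga, the granin of hormone granules, read 5.21, 10.5 and 11.2 CPM and 0.834, 2.73 and 2.08 CPM (-2.25 ± 0.52, adjusted p = 0.00836). Trpm5, the taste channel of tuft cells, read 4, 5.98 and 5.13 CPM and 0.307, 0.202 and 0.305 CPM (-4.17 ± 0.37, adjusted p = 0.00017), and Dclk1, their classical marker, changed by -3.36. Chgb (a granin) and Tph1 (of serotonin synthesis) fell by 4.90 and 3.94 on the log2 scale. Neurod1 (an enteroendocrine factor) had 0 counts in AC and was at least 7.61-fold lower in AC. Avil, an actin regulator of tuft cells and sensory neurons, rose from 3.17, 5.83 and 5.32 CPM to 28.9, 54.95 and 11.2 CPM (2.73 ± 0.60, adjusted p = 0.00676). In the antimicrobial list 10 of 13 tested genes fell. Reg3b and Reg3g are secreted lectins that kill or exclude bacteria. Reg3b read 214, 247 and 246 CPM in sham and 0.132, 0.101 and 0.254 CPM in AC (-10.45 ± 0.30, adjusted p = 2.16e-05), and Reg3g dropped to 2 counts in the tumours, a ratio of 2340-fold (95% counting interval 647 to 19300). Pigr, which carries IgA across the epithelium, read 3812, 4389 and 4572 CPM and 1.45, 0.606 and 43.5 CPM (-8.13 ± 1.89, adjusted p = 0.00886). Nos2, the inducible nitric oxide synthase, fell from 72.2, 65.9 and 71.7 CPM to 10.9, 15.2 and 3.56 CPM (-2.82 ± 0.49, adjusted p = 0.00258). The 3 genes that rose, Lcn2, S100a8 and S100a9, are proteins that neutrophils also make. Lcn2, which withholds iron from bacteria, read 1.36, 0.812 and 0.705 CPM and 20.2, 46.3 and 5.59 CPM (4.64 ± 0.84, adjusted p = 0.00299). Their 3 calls became 1 without sham 2, sham 3, AC 1 or AC 2, and the 10 falls became 6 without sham 1.

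The crypt base list, which marks stem cells and targets of Wnt signalling, split. Of 13 tested genes 5 fell, 2 rose and 6 were not called, with a median of 0.19. Lgr5, the receptor that marks crypt stem cells, read 7.03, 5.83 and 5.96 CPM in sham and had 2 counts in AC, a ratio of 195-fold (95% counting interval 53.4 to 1620). Ascl2, the stem cell transcription factor, read 3.25, 2.07 and 1.92 CPM and 0.263, 0.202 and 0.305 CPM (-3.19 ± 0.40, adjusted p = 0.000653). Axin2, a feedback target of Wnt, read 3.25, 9.67 and 7.69 CPM and 0.307, 0.303 and 0.305 CPM (-4.46 ± 0.52, adjusted p = 0.000494). Rnf43, a ubiquitin ligase that removes Wnt receptors, fell from 21, 31.1 and 32.7 CPM to 0.746, 0.404 and 1.47 CPM (-5.01 ± 0.50, adjusted p = 0.000263), while Znrf3, its homologue with the same task, rose from 4.23, 5.83 and 6.15 CPM to 11.9, 15.8 and 12.4 CPM (1.30 ± 0.25, adjusted p = 0.00354). Lrig1, a brake on growth factor receptors, rose from 19.04, 28.5 and 29.4 CPM to 98.5, 88.9 and 106 CPM (1.93 ± 0.20, adjusted p = 0.000314). The median of the list was -0.17 without sham 1 and -0.05 without AC 3, so its sign depended on these libraries. The rises called were 4 without sham 1 and 6 with scaling by totals.

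The regulators of cell identity moved in opposite blocks. In the list of epithelial transcription factors and splicing factors, all 21 tested fell, with a median of -5.85. Not every member is an epithelial factor: the list also holds a factor of mesenchyme and a metabolic coactivator, which fell too. Hnf4a, a nuclear receptor that drives colonocyte genes, read 1199, 1839 and 1871 CPM in sham and 1.14, 0.151 and 41.7 CPM in AC (-6.83 ± 2.00, adjusted p = 0.0216). Esrp1, which splices messages in the epithelial manner, read 530.5, 473 and 475 CPM and 0.0877, 0.101 and 12.9 CPM (-6.82 ± 1.88, adjusted p = 0.0172). Klf4, a factor of differentiated colonocytes, read 1343, 1243 and 1219 CPM and 119.6, 122 and 110.2 CPM (-3.44 ± 0.14, adjusted p = 2.69e-05). Klf4 fell in all 3 tumours alike, whereas Hnf4a and Esrp1 were higher in AC 3 than in the other tumours. Vdr, the vitamin D receptor, read 621, 763 and 805 CPM and 12.9, 12.3 and 23.9 CPM (-5.48 ± 0.35, adjusted p = 5.95e-05). Klf5 (a factor of crypt epithelium) fell by 3.15 on the log2 scale. The falls called were 16 without sham 1 and 13 with no filter on low counts.

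Of the genes that drive or mark the mesenchymal state all 16 rose, with a median of 5.41. Zeb1 and Zeb2 are zinc finger repressors of epithelial genes. Zeb1 read 14.7, 6.64 and 7.88 CPM in sham and 39.3, 40.8 and 50.2 CPM in AC (2.16 ± 0.33, adjusted p = 0.00149). Zeb2 read 15.03, 8.49 and 7.12 CPM and 151, 148 and 209.8 CPM (4.06 ± 0.34, adjusted p = 0.000148). Twist1, a helix-loop-helix factor of mesenchyme, read 0.529, 0.738 and 0.192 CPM and 45.3, 43.7 and 41.05 CPM (6.48 ± 0.41, adjusted p = 5.87e-05). Prrx1, a homeobox factor of limb and craniofacial mesenchyme, read 1.21, 0.517 and 0.513 CPM and 381, 301 and 417 CPM (8.94 ± 0.42, adjusted p = 3.29e-05). For these factors every tumour lay above every colon library, by the widest margin for Prrx1. Hmga2, a chromatin protein of embryonic and tumour cells, read 14.9, 11.6 and 11.7 CPM and 594, 693 and 536 CPM (5.58 ± 0.21, adjusted p = 2.61e-05). Axl, a receptor kinase for Gas6, rose from 19.6, 12.8 and 12.8 CPM to 765, 846 and 809 CPM (5.74 ± 0.25, adjusted p = 2.83e-05). Vim, the intermediate filament vimentin, read 56.4, 26.6 and 24.1 CPM and 2609, 2297 and 2822 CPM (6.17 ± 0.43, adjusted p = 7.65e-05). Cdh2, N-cadherin, read 2.19, 1.92 and 1.03 CPM and 60.5, 62.3 and 72.5 CPM (5.25 ± 0.31, adjusted p = 5.20e-05). Macrophages, fibroblasts and endothelium also express Vim, Axl and Zeb2, and most of their markers rose in the same tumours; their part in these rises was not tested.

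**Figure D3:**
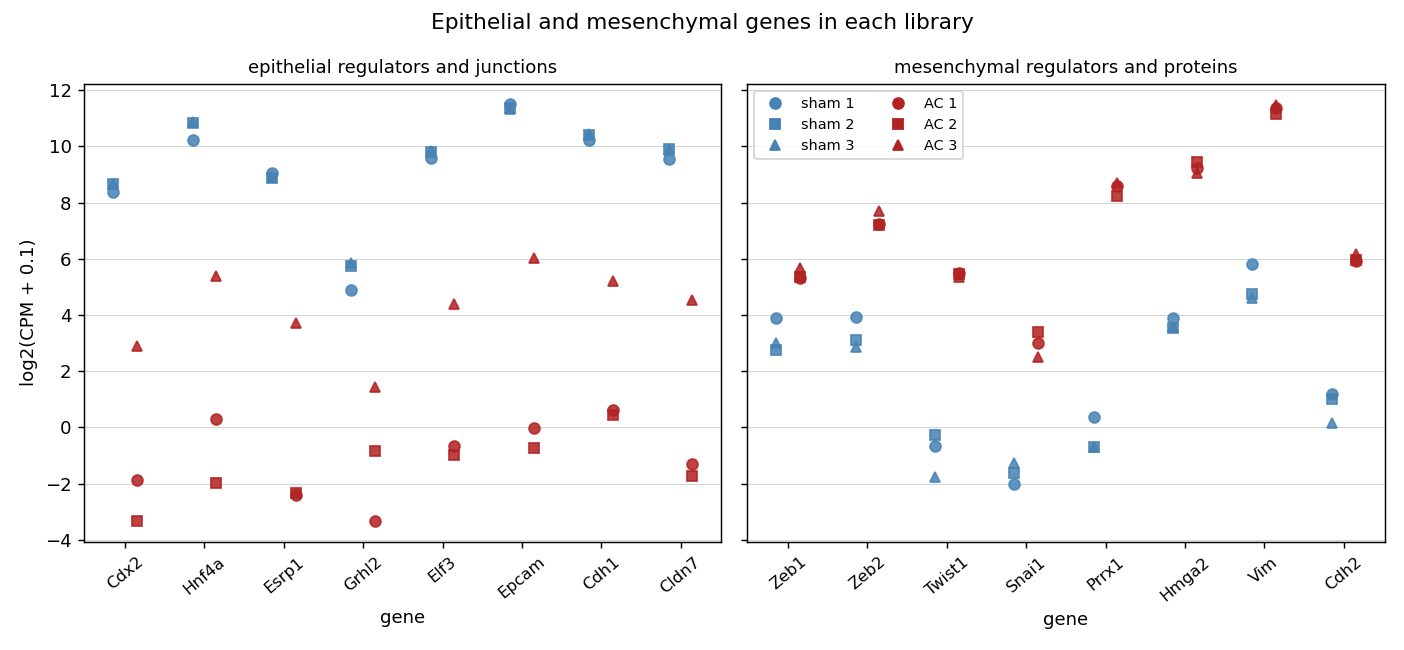
Levels of 8 epithelial and 8 mesenchymal genes (horizontal axis) in each library, as log2(CPM + 0.1) (vertical axis); blue marks are sham, red marks are AC, and circle, square and triangle are libraries 1, 2 and 3. The AC triangles sit above the other red marks for the epithelial genes, where Epcam read 65.5 CPM in AC 3, and the 3 AC libraries lie close together for the mesenchymal genes.

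The proteins that join epithelial cells were lower as well: all 23 tested of 24 listed fell, with a median of -6.17. Cdh1, E-cadherin of adherens junctions, read 1190, 1343 and 1371 CPM in sham and 1.45, 1.26 and 37.1 CPM in AC (-6.62 ± 1.57, adjusted p = 0.00962). Cldn7, a tight junction claudin, read 749, 959 and 923 CPM and 0.307, 0.202 and 23.01 CPM (-6.81 ± 1.92, adjusted p = 0.019). F11r, a junctional adhesion molecule, read 389, 522 and 544 CPM and 7.81, 8.48 and 17.2 CPM (-5.44 ± 0.40, adjusted p = 9.03e-05). Jup and Ctnnd1, catenins that bind cadherin tails in many tissues, kept more of their level, with changes of -3.88 and -2.46. Cdh1 and Cldn7 were higher in AC 3 than in AC 1 and AC 2. Without sham 1 the junction falls called were 13 of 23, as with no filter on low counts, and without both sham 1 and AC 3 they were 23.

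Zeb and Snail factors bind the E-box CACCTG, so the 250 bases before the start of the junction genes were searched for it on both strands. RefSeq promoters on GRCm38.p6 were found for 15 of the 24 listed genes, and 8 of these genes held a match. Counted by promoter it was 9 of 19, or 47.4%, and 17.2% of all 32851 promoters held one. A match is a run of letters and says nothing about binding in these samples. Epcam and Ocln each hold a further match, at -187 and -213 from the gene start, outside the stretches printed below. The stretches of 100 bases below show where the letters (capitals) lie in 4 of the genes that fell, at chr17:87635879-87635978 (plus strand), chr5:134946935-134947034 (minus strand), chr11:69965314-69965413 (plus strand) and chr13:100552517-100552616 (minus strand).
Epcam: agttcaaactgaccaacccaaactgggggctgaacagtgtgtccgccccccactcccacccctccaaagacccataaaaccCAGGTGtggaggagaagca
Cldn4: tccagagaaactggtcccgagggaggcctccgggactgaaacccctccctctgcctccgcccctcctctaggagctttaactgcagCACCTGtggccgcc
Cldn7: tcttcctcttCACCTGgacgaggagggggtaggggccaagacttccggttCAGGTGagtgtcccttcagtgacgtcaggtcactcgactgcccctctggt
Ocln: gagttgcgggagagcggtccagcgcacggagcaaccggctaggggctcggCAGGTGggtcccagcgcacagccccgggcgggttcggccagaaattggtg
Of these genes Cldn4 read 30.1, 62.5 and 63.4 CPM in sham and 0.219, 0 and 3.46 CPM in AC (-5.42 ± 1.30, adjusted p = 0.0102). Ocln, occludin of the tight junction, read 124, 129 and 136 CPM and 0.483, 0.253 and 4.83 CPM (-6.13 ± 1.06, adjusted p = 0.00266). The letters TTTATNG of a Cdx site were sought in the same way among brush border genes and were found in 4 of 18 promoters, or 22.2%, against 9.81% of all promoters. Among transport genes they were found in 0 of 18. The examples shown are Alpi, intestinal alkaline phosphatase, at chr1:87101607-87101706 (minus strand), and Krt20, at chr11:99438154-99438253 (minus strand). Their matches start at -33 and -30 from the gene start, where a TATA box of similar letters can also lie. Whether these matches are Cdx sites or TATA boxes was not tested, and the same holds for the shares of promoters.
Alpi: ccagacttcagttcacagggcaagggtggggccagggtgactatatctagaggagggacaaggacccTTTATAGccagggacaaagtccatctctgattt
Krt20: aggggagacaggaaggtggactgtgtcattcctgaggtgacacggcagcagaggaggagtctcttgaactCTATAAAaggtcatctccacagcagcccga
Alpi read 25.01, 95.2 and 101 CPM in sham and 0, 0 and 0.813 CPM in AC (-8.10 ± 1.26, adjusted p = 0.0017). The longer Hnf4 letters CAAAGTCCA were in 1 of the 18 brush border promoters, 0 of the 18 transport promoters and 1 of 27 promoters of the xenobiotic list, and in 0.384% of all promoters.

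Hox genes mark position along the body axis, and the posterior members are expressed in hindgut. All 11 tested of 19 listed fell, with a median of -4.63. Hoxa13, the most posterior of its cluster, read 87.6, 18.01 and 17.1 CPM in sham and 0.439, 0.151 and 1.17 CPM in AC (-6.12 ± 1.03, adjusted p = 0.00217). Hoxa10 read 116, 92.7 and 90.3 CPM and 8.82, 8.69 and 12.04 CPM (-3.34 ± 0.20, adjusted p = 5.51e-05). Hoxb9 read 60.97, 78.7 and 77.1 CPM and 2.15, 2.22 and 3.86 CPM (-4.72 ± 0.30, adjusted p = 5.87e-05). Hoxa5, the most anterior listed, had the smallest fall of those tested, with 35.8, 30.1 and 32.05 CPM and 6.54, 6.31 and 7.37 CPM (-2.27 ± 0.17, adjusted p = 9.94e-05). Every AC library lay below every sham library for these genes. Hoxd13 and Hoxb13 did not pass the filter on low counts. The most counted of the 8 untested members held 106 counts over the 6 libraries. Hoxa11 had 0 counts in AC and was at least 37.6-fold lower, but it shares 35% of its exons with an antisense gene and the strand setting of the counting is not given.

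Smooth muscle genes were lower in tumours and uneven among colon samples. Of 16 tested genes 14 fell and 1 rose, with a median of -3.83. Myh11 read 44.1, 448 and 489.7 CPM in sham and 1.97, 33.1 and 7.16 CPM in AC (-4.54 ± 1.34, adjusted p = 0.0223). Cnn1, calponin, read 7.33, 161 and 169.8 CPM and 0.219, 5.61 and 1.98 CPM (-5.45 ± 1.48, adjusted p = 0.0163). Mylk, the kinase that starts contraction, read 152, 295 and 302 CPM and 37.1, 42.1 and 45.8 CPM (-2.58 ± 0.29, adjusted p = 0.000431). Actg2 (enteric smooth muscle actin), Tagln (transgelin) and Synpo2 (of muscle Z-lines) fell by 4.84, 4.37 and 3.96 on the log2 scale. Tagln shares 62.4% of its exons with Gm48529, which makes its level uncertain. Sham 1 lay between the other colon libraries and the tumours for Myh11 and Cnn1. The falls called were 8 without AC 3, 9 without sham 3 and 7 with no filter on low counts, against 13 without both sham 1 and AC 3. Hspb6, a small heat shock protein of muscle, rose (1.23 ± 0.40, adjusted p = 0.0308). Among enteric neuron, glia and pacemaker genes 10 of 16 were tested and 5 fell. Ano1, the chloride channel of pacemaker cells, read 9.52, 7.68 and 8.91 CPM and 1.14, 1.36 and 0.66 CPM (-3.03 ± 0.35, adjusted p = 0.000454). Snap25, a protein of synaptic vesicle release, read 1.06, 3.99 and 4.62 CPM and 0.175, 0.101 and 0 CPM (-4.98 ± 0.91, adjusted p = 0.00307). Elavl4 (of neurons) fell by 4.49 on the log2 scale. Etv1, a transcription factor of pacemaker cells that other tissues use too, rose from 2.27, 3.32 and 4.36 CPM to 73.9, 56.01 and 96.3 CPM (4.50 ± 0.33, adjusted p = 9.34e-05), as did Tubb3, a tubulin of neurons and of some tumours (3.33 ± 0.52, adjusted p = 0.00163).

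**Figure D4:**
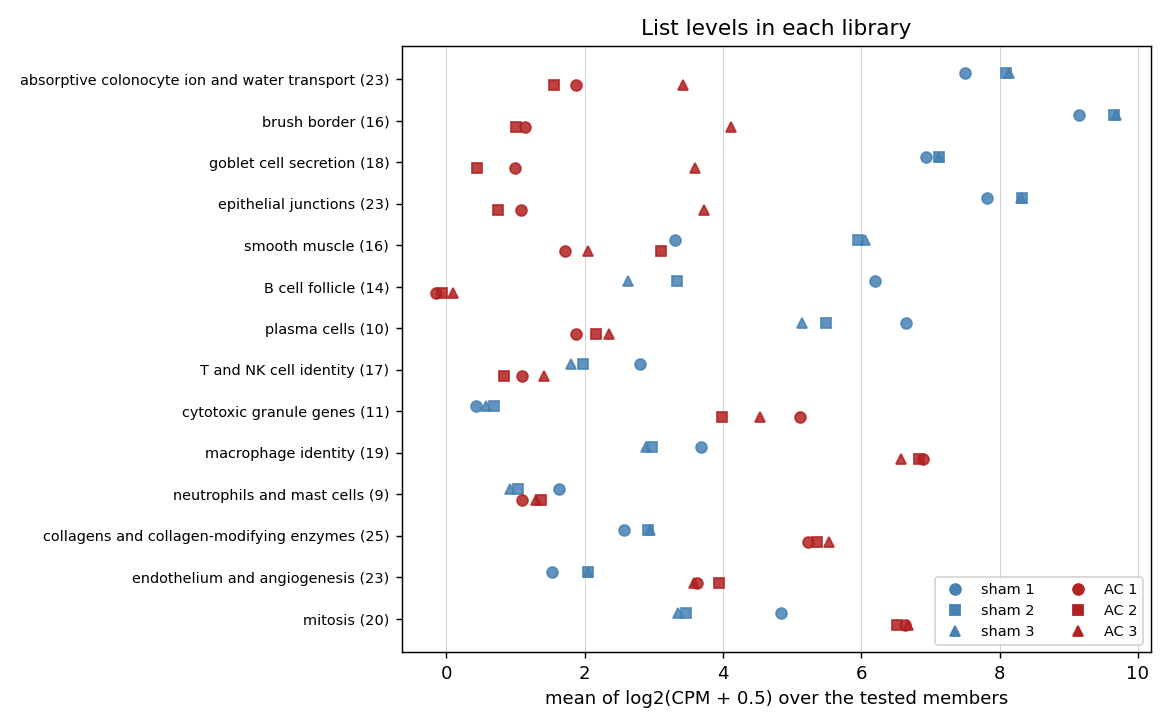
Level of 14 gene lists (vertical axis, number of tested genes in parentheses) in each library, as the mean of log2(CPM + 0.5) over the tested members (horizontal axis); blue marks are sham, red marks AC, and circle, square and triangle are libraries 1, 2 and 3. Sham 1 stands at the right for B cell follicle genes (6.20, 3.34 and 2.62 in the 3 sham libraries) and at the left for smooth muscle, and AC 3 stands at the right of the other tumours for the 4 epithelial lists.

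B cells and plasma cells belong to the lymphoid follicles and the IgA system of the gut, and their genes were lower in tumours. All 14 follicle genes fell, with a median of -6.36, as did all 10 tested plasma cell genes of 11, with a median of -3.7. Ms4a1 changed by -10.09 ± 1.91, adjusted p = 0.00378. Cxcl13, the chemokine that draws B cells into follicles, read 206, 15.1 and 10.1 CPM and 0.526, 0.556 and 0.711 CPM (-7.00 ± 1.5, adjusted p = 0.00624). The colon libraries differed widely among themselves for these genes, with sham 1 the highest, yet the lowest still lay above the tumours. Cd79a (a chain of the B cell receptor) and Fcer2a (the low affinity IgE receptor) fell by 5.91 and 6.76 on the log2 scale. Blk (a B cell kinase) differed by a ratio of 780-fold (95% counting interval 139 to 30900), lower in AC. Jchain, which joins IgA and IgM into polymers, read 401, 95.3 and 90.2 CPM and 1.19, 2.42 and 1.88 CPM (-6.74 ± 0.81, adjusted p = 0.000571). Igha, the constant part of IgA, read 166, 145 and 141 CPM and 2.02, 7.53 and 3.66 CPM (-5.10 ± 0.50, adjusted p = 0.000256), with even levels across the colon libraries. Sdc1 (a syndecan of plasma cells and epithelium) and Igkc (the kappa constant part) fell by 2.44 and 6.61 on the log2 scale. Mzb1 (of antibody-secreting cells) differed by a ratio of 557-fold (95% counting interval 190 to 2710), lower in AC. All 14 and 10 falls were called also without both sham 1 and AC 3.

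CD3 chains were lower and several granzyme transcripts far higher. Of the 17 T and NK identity genes tested, 7 fell, 2 rose and 8 were not called, with a median of -1.08. Cd3e, part of the T cell receptor, read 10.2, 7.24 and 7.95 CPM in sham and 1.58, 1.87 and 2.64 CPM in AC (-2.06 ± 0.31, adjusted p = 0.00141). The constant parts of the receptor itself were not called: Trac read 12.99, 2.66 and 2.05 CPM and 1.89, 1.06 and 1.63 CPM (-1.94 ± 0.77, adjusted p = 0.061), and Trbc2 had a log2 fold change of -2.67 ± 1.11 (adjusted p = 0.0708). Cd4, the helper coreceptor, read 26.4, 3.47 and 3.08 CPM and 0.746, 0.707 and 0.66 CPM (-3.94 ± 0.97, adjusted p = 0.0108). Cd8a, the coreceptor of killer cells, read 7.33, 12.1 and 13.97 CPM and 5.57, 3.64 and 8.69 CPM and was not called (-0.90 ± 0.40, adjusted p = 0.0868). Ncr1, an activating receptor of NK cells, rose from 1.06, 1.18 and 0.641 CPM to 4.26, 1.47 and 2.69 CPM (1.55 ± 0.50, adjusted p = 0.03) at low levels. Klrk1 (the receptor NKG2D) rose by 1.32 on the log2 scale. Cd3d (a T cell receptor chain), Cd3g (a T cell receptor chain) and Cd160 (an NK and T cell receptor) fell by 3.61, 2.66 and 1.73 on the log2 scale. The 2 rises called were 0 without sham 2 and 0 without AC 3, and 4 without both sham 1 and AC 3.

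Of the cytotoxic granule genes 7 of 11 tested rose and none of the 11 was called lower, with a median of 6.85. Prf1, perforin, which opens the target membrane, read 0.68, 0.664 and 0.256 CPM in sham and 49.6, 24.1 and 35.9 CPM in AC (6.10 ± 0.47, adjusted p = 0.00011). Granzymes are proteases that enter through it. Gzmc read 0.302, 0.591 and 0.128 CPM and 53.04, 24.5 and 40.5 CPM (6.85 ± 0.56, adjusted p = 0.000132). Gzmd had 1 count in the 3 sham libraries and read 124, 48.1 and 76.4 CPM in AC, a ratio of 3590-fold (95% counting interval 644 to 142000). Gzmg had 0 counts in sham and 114, 55.7 and 70.8 CPM in AC, at least 375-fold higher. The order of the tumours was the same for these genes: AC 1 was the highest and AC 2 the lowest. Gzmb, the granzyme of effector T and NK cells, was not called, with 7.71, 28.1 and 29.6 CPM in sham and 41.3, 20.1 and 29.1 CPM in AC (0.47 ± 0.52, adjusted p = 0.452), and the groups overlapped. Gzma read 13.4, 38.4 and 33.4 CPM and 19.7, 3.59 and 8.89 CPM and was not called (-1.40 ± 0.67, adjusted p = 0.102), and neither was Nkg7, a granule protein (adjusted p = 0.265). Serpinb9b, an inhibitor of granzymes, had 2 counts in sham and read 26.8, 18.1 and 24.2 CPM in AC, a ratio of 492-fold (95% counting interval 136 to 4060). Gzmc, Gzmd, Gzme, Gzmf and Gzmg lie side by side on chromosome 14 (from 56117626 to 56234656, GRCm38) and are close copies, so how the reads divide among them is uncertain. Cd3e and Cd4 fell in the same tumours and Cd8a was not called; the source of the granzyme transcripts was not tested.

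Checkpoint genes showed no common direction: 5 rose, 1 fell and 8 of 14 were not called, with a median of 0.31. Havcr2, the receptor TIM-3 of exhausted T cells and of myeloid cells, rose from 3.7, 0.443 and 1.15 CPM to 17.5, 13.4 and 17.8 CPM (3.20 ± 0.69, adjusted p = 0.00611). Cd80, a costimulatory ligand, read 3.25, 0.812 and 1.22 CPM in sham and 41.5, 31.2 and 37.5 CPM in AC (4.39 ± 0.52, adjusted p = 0.000528). Vsir, the checkpoint VISTA, read 12.01, 5.83 and 6.03 CPM and 37.3, 41.01 and 33.1 CPM (2.22 ± 0.32, adjusted p = 0.00122). Lgals9, a galectin of gut epithelium, fell from 218, 303 and 311 CPM to 57.1, 49.8 and 52.02 CPM (-2.39 ± 0.18, adjusted p = 9.94e-05). Cd274, the ligand PD-L1, read 43.9, 43.9 and 45.6 CPM and 35.8, 43.9 and 33.8 CPM and was not called (-0.23 ± 0.15, adjusted p = 0.196). Pdcd1 (PD-1) and Ctla4 (CTLA-4) were not called, with a log2 fold change of 0.44 and -0.57 (adjusted p = 0.722 and 0.535). The median of the list was -0.06 without sham 3, and the rises called were 8 without both sham 1 and AC 3.

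Most macrophage genes were higher in tumours. Of 19 tested genes 15 rose, 1 fell and 3 were not called, with a median of 3.16. Adgre1, the antigen F4/80, read 2.42, 2.07 and 1.67 CPM in sham and 39.1, 29.6 and 50.1 CPM in AC (4.27 ± 0.29, adjusted p = 7.07e-05). Csf1r, the growth factor receptor of the lineage, read 17.3, 11.8 and 8.97 CPM and 85.4, 82.7 and 81.3 CPM (2.71 ± 0.26, adjusted p = 0.000219). Cd68, a lysosomal protein, read 8.39, 10.8 and 10.1 CPM and 61.95, 54.95 and 49.03 CPM (2.50 ± 0.18, adjusted p = 7.94e-05). No colon library reached any tumour for these markers. Changes were larger for Mrc1, Msr1 and Arg1. Mrc1, the mannose receptor CD206, read 4.53, 5.76 and 4.62 CPM and 501, 359 and 241 CPM (6.21 ± 0.35, adjusted p = 4.71e-05). Msr1, a scavenger receptor, read 4.53, 4.21 and 3.97 CPM and 171, 161 and 122 CPM (5.16 ± 0.19, adjusted p = 2.61e-05). Arg1, arginase, read 2.95, 0.812 and 1.09 CPM and 157, 220.2 and 78.3 CPM (6.56 ± 0.66, adjusted p = 0.000278). Mrc1 was highest in AC 1 and Arg1 in AC 2, and AC 3 was the lowest tumour for both. Cd163, a haemoglobin scavenger, rose by 6.03 ± 0.48, adjusted p = 0.000125, and Trem2, a lipid receptor, had 2 counts in sham and 16.8, 15.2 and 12.7 CPM in AC, a ratio of 317-fold (95% counting interval 87.6 to 2620). Itgam (the integrin CD11b) rose by 4.99 on the log2 scale. Itgam shares 68.7% of its exons with Gm49368, which makes its level uncertain. Cd14, the endotoxin coreceptor, fell from 165, 241 and 230.2 CPM to 69.05, 66.5 and 54.8 CPM (-1.74 ± 0.19, adjusted p = 0.000389).

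Antigen-presenting genes were more often called lower than higher. Of 13 tested genes of dendritic cells and MHC class II, 6 fell, 2 rose and 5 were not called, with a median of -1.2. Ciita, the master activator of MHC class II, read 48.9, 20.1 and 18.6 CPM in sham and 5.26, 2.83 and 9.8 CPM in AC (-2.29 ± 0.58, adjusted p = 0.0122). H2-Ab1, a class II beta chain, read 187, 92.4 and 90.1 CPM and 23.5, 22.98 and 55.7 CPM (-1.85 ± 0.47, adjusted p = 0.0117). Cd74, the invariant chain, read 422, 262 and 243 CPM and 104, 93.6 and 215 CPM (-1.17 ± 0.39, adjusted p = 0.0334). AC 3 was the highest tumour for these genes and sham 1 the highest colon library. Zbtb46, a transcription factor of classical dendritic cells and endothelium, rose from 3.25, 1.7 and 1.92 CPM to 9.48, 7.02 and 10.3 CPM (1.96 ± 0.34, adjusted p = 0.00263). Itgax (the integrin CD11c), Flt3 (a dendritic cell growth factor receptor) and Xcr1 (a receptor of cross-presenting dendritic cells) were not called, with a log2 fold change of -0.15, -2.00 and -0.03 (adjusted p = 0.731, 0.0597 and 0.95). The falls called were 2 without AC 1, 2 without AC 2 and 2 with scaling by totals.

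Among neutrophil and mast cell genes 9 of 17 were tested, 6 rose and 3 fell. The list level was 1.63, 1.04 and 0.92 in sham and 1.09, 1.37 and 1.30 in AC, so the groups overlapped in it. Csf3r, the receptor for G-CSF, read 1.96, 0.664 and 0.897 CPM in sham and 12.02, 12.1 and 9.04 CPM in AC (3.23 ± 0.45, adjusted p = 0.000982). Mmp9, a gelatinase of granulocytes and macrophages, read 2.27, 1.11 and 1.09 CPM and 9.12, 12.5 and 8.18 CPM (2.74 ± 0.40, adjusted p = 0.00116). Cxcr2 (a neutrophil chemokine receptor) rose by 4.08 on the log2 scale. The granule genes Elane, Mpo, Ngp and Camp were at or near 0 in all 6 libraries. Mcpt1, a protease of mucosal mast cells, read 7.25, 4.65 and 3.59 CPM in sham and had 1 count in AC, a ratio of 316-fold (95% counting interval 56.1 to 12500). Cpa3, a carboxypeptidase of mast cells, read 0.453, 0.222 and 0.192 CPM in sham and 0.79, 0.505 and 14.02 CPM in AC (4.12 ± 1.49, adjusted p = 0.0449), with AC 1 and AC 2 close to the colon level and AC 3 far above it. Tpsb2, a tryptase of connective tissue mast cells, was not tested but showed the same pattern, 0.834, 0.151 and 12.7 CPM, and so did Mcpt4 (0.219, 0.202 and 8.59 CPM). Mast cell proteases are close copies of one another and their division is uncertain. Ly6g, the mark of mouse neutrophils, read 48.3, 93.8 and 93.8 CPM in sham and 0.0439, 0 and 0.203 CPM in AC (-9.81 ± 0.68, adjusted p = 7.55e-05), although the granule genes were near 0 in sham; it belongs to the Ly6 family of close copies and its level is uncertain. The rises called were 3 without sham 2 or sham 3.

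Chemokine genes moved in both directions, with more of them higher in tumours. Of the list 25 of 26 were tested, 14 rose, 5 fell and 6 were not called, with a median of 2.27. Ccl2, the monocyte attractant, read 1.74, 0.222 and 0.128 CPM in sham and 115, 91.4 and 53.8 CPM in AC (6.99 ± 0.86, adjusted p = 0.0006). Ccl7, its neighbour in sequence and function, read 0.68, 0.96 and 0.769 CPM and 64.05, 41.5 and 27.99 CPM (5.78 ± 0.41, adjusted p = 8.03e-05). Their receptor Ccr2 read 4.31, 2.88 and 4.17 CPM and 40.6, 25.1 and 39.5 CPM (3.21 ± 0.29, adjusted p = 0.000184). Ccl5, which attracts T cells and monocytes, fell from 5.14, 7.09 and 8.91 CPM to 1.19, 1.06 and 1.47 CPM (-2.50 ± 0.33, adjusted p = 0.000823). Cxcl1, a neutrophil attractant, read 0.302, 0.148 and 0.256 CPM and 5.75, 9.34 and 3.66 CPM (4.69 ± 0.54, adjusted p = 0.000466). The interferon-induced Cxcl9 and Cxcl10 rose by 3.18 and 2.83. Ccl28, which recruits IgA plasma cells to mucosa, fell from 117, 103 and 100.1 CPM to 0.263, 0.202 and 2.29 CPM (-6.87 ± 0.88, adjusted p = 0.000713), and Ccl20, which recruits cells to follicles, to 3 counts in the tumours, a ratio of 261-fold (95% counting interval 88.8 to 1270).

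Inflammatory mediators moved in both directions. Of 20 tested genes 9 rose, 5 fell and 6 were not called. Ptgs1, Ptgs2 and Ptges act in the synthesis of prostaglandin E2. Ptgs2, the inducible cyclooxygenase, read 4.23, 5.46 and 6.22 CPM in sham and 148, 244 and 96.9 CPM in AC (4.94 ± 0.41, adjusted p = 0.000135). Ptgs1, its constitutive counterpart, read 11.6, 19.1 and 21.1 CPM and 256, 213 and 212 CPM (3.72 ± 0.26, adjusted p = 7.81e-05), and Ptges, which makes prostaglandin E2, 4, 1.55 and 1.41 CPM and 215, 187 and 128 CPM (6.25 ± 0.50, adjusted p = 0.000123). Hpgd, the enzyme that breaks prostaglandins down, moved the opposite way, from 170.4, 186 and 189 CPM to 0.219, 0.808 and 12.04 CPM (-5.39 ± 1.35, adjusted p = 0.0121). For Ptgs2 AC 2 was the highest tumour and AC 3 the lowest. Csf1, the macrophage growth factor, read 7.03, 3.77 and 3.4 CPM and 167, 188 and 106 CPM (5.02 ± 0.39, adjusted p = 0.000113). Il11, a cytokine of the IL-6 family, read 0.755, 0.148 and 0.321 CPM and 13.3, 20.9 and 12.3 CPM (5.24 ± 0.56, adjusted p = 0.000348). Il1b rose by 2.38 ± 0.47, adjusted p = 0.0043, and Il6 read 1.19, 2.02 and 0.66 CPM in AC against 3 counts in sham, a ratio of 18.1-fold (95% counting interval 5.99 to 89.9). Il18, a cytokine stored in epithelium, fell from 251.4, 216 and 199.9 CPM to 2.63, 1.31 and 3.81 CPM (-6.42 ± 0.42, adjusted p = 6.53e-05), Il15 changed by -2.11, and Tnf, tumour necrosis factor, fell from 13.2, 7.6 and 6.03 CPM to 1.36, 1.41 and 1.12 CPM (-2.77 ± 0.38, adjusted p = 0.000974). Without both sham 1 and AC 3 the rises called were 14 of 19 tested.

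Interferon-induced genes were lower in tumours, although less so under another scaling. Of 27 genes 19 fell, 3 rose and 5 were not called, with a median of -0.93. With scaling by totals the falls were 12, the rises 6 and the median -0.29. Under that scaling 3 members changed sign, among them Psmb8, which had been called lower with TMM. Ifit1, which binds foreign RNA, read 649, 353 and 344 CPM in sham and 31.9, 23.7 and 28.4 CPM in AC (-4.00 ± 0.32, adjusted p = 0.000123). Isg15, a ubiquitin-like modifier, read 168, 147 and 152 CPM and 23.6, 25.1 and 19.9 CPM (-2.77 ± 0.14, adjusted p = 4.12e-05). Irf7, the factor that amplifies the response, read 218, 367 and 347 CPM and 51.5, 36.1 and 52.4 CPM (-2.74 ± 0.27, adjusted p = 0.00025). Oas1a, a sensor of double-stranded RNA, changed by -2.77 and Irf1 by -2.32. All tumours were below all colon libraries for Ifit1, Isg15 and Irf7. Of the guanylate-binding proteins, which interferon gamma induces, both listed members rose: Gbp2 read 32.7, 25.2 and 20.9 CPM and 198, 130.5 and 132 CPM (2.54 ± 0.25, adjusted p = 0.000269), though close copies make its level uncertain. Nlrc5, the activator of MHC class I genes, rose from 33.3, 28.6 and 28.4 CPM to 94.8, 97.7 and 107 CPM (1.73 ± 0.13, adjusted p = 9.68e-05), while H2-K1, a class I heavy chain, fell from 915, 962 and 895 CPM to 451, 403 and 488 CPM (-1.05 ± 0.14, adjusted p = 0.00085).

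Matrix genes rose. Of the collagens and the enzymes that modify them 21 of 25 rose and none of the 25 was called lower, with a median of 2.75. Col1a1 and Col1a2 form type I collagen. Col1a1 read 9.44, 9.89 and 9.49 CPM in sham and 91.2, 92.5 and 97.8 CPM in AC (3.29 ± 0.12, adjusted p = 2.61e-05). Col1a2 read 46.4, 26.1 and 28.3 CPM and 831, 754 and 885 CPM (4.62 ± 0.28, adjusted p = 5.58e-05). Col4a1, of basement membranes, read 14.8, 23.3 and 26.1 CPM and 276, 323 and 265 CPM (3.75 ± 0.25, adjusted p = 7.02e-05). These chains were even across the tumours. Col3a1 (type III collagen) rose by 1.85 on the log2 scale. Col6a3 was uneven, with 13.6, 35.1 and 154 CPM in AC against 13.1, 11.2 and 10.7 CPM in sham (2.54 ± 0.86, adjusted p = 0.0371), and AC 1 lay close to the colon level. Serpinh1, the collagen chaperone, rose from 12.8, 14.8 and 15.7 CPM to 398, 428 and 341 CPM (4.75 ± 0.17, adjusted p = 2.61e-05), and Loxl3, a crosslinking oxidase, from 1.28, 2.88 and 1.6 CPM to 129, 101 and 164 CPM (6.09 ± 0.38, adjusted p = 5.80e-05).

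Of 26 matrix glycoproteins, proteases and inhibitors 18 rose and 1 fell, with a median of 2.83. Fn1, fibronectin, read 14.9, 59.6 and 56.6 CPM in sham and 2190, 3837 and 2528 CPM in AC (6.03 ± 0.64, adjusted p = 0.000351). Timp1, an inhibitor of metalloproteinases, read 0.755, 0.148 and 0.128 CPM and 135, 176 and 109.7 CPM (8.69 ± 0.59, adjusted p = 7.02e-05). Plau, an activator of plasminogen, rose from 7.03, 8.12 and 7.63 CPM to 98.4, 79.1 and 49.1 CPM (3.31 ± 0.28, adjusted p = 0.000158), and its receptor Plaur by 3.49 ± 0.25, adjusted p = 7.90e-05. Protease and receptor were thus both higher. Sparc (a matrix glycoprotein) and Timp2 (a metalloproteinase inhibitor) rose by 3.07 and 3.81 on the log2 scale. Thbs2, a thrombospondin, was uneven, with 130.5, 178 and 482 CPM in AC and 5.74, 7.16 and 7.12 CPM in sham (5.30 ± 0.58, adjusted p = 0.000379). Postn, periostin, fell from 28.6, 29.1 and 32.5 CPM to 4.34, 7.22 and 7.72 CPM (-2.23 ± 0.26, adjusted p = 0.000502), and the falls called were 3 without both sham 1 and AC 3.

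Fibroblast and pericyte genes divided: 10 of 17 rose and 5 fell. Pdgfra and Pdgfrb are receptors of fibroblasts and mural cells. Pdgfra read 18.5, 14.2 and 17.4 CPM in sham and 62.9, 44.9 and 70.5 CPM in AC (1.83 ± 0.22, adjusted p = 0.000525). Pdgfrb read 4.68, 5.54 and 4.62 CPM and 40.4, 51.3 and 56.3 CPM (3.32 ± 0.20, adjusted p = 5.47e-05). Pdpn, podoplanin, rose from 2.04, 1.25 and 0.833 CPM to 67.8, 63.1 and 51.3 CPM (5.47 ± 0.35, adjusted p = 6.12e-05), and Grem1, a secreted BMP antagonist, from 8.16, 2.88 and 3.33 CPM to 87.1, 131 and 182 CPM (4.80 ± 0.52, adjusted p = 0.000368). Foxf1 (a factor of gut mesenchyme) rose by 2.86 on the log2 scale. Dpt (dermatopontin) fell by 2.48 on the log2 scale. Fap (a protease of activated fibroblasts) was not called, with a log2 fold change of 1.01 (adjusted p = 0.364). Rgs5, of pericytes, fell from 29.8, 151 and 161 CPM to 26.9, 28.3 and 9.5 CPM (-2.40 ± 0.71, adjusted p = 0.0225), as did the muscle genes Acta2 and Des that the list shares, and the falls called were 3 without sham 3 or AC 3 and 2 with no filter on low counts. Endothelial genes rose in 15 of 23, with 2 falls and a median of 1.92. Cdh5, VE-cadherin, read 0.755, 2.81 and 2.63 CPM and 30.3, 45.5 and 31.04 CPM (4.10 ± 0.49, adjusted p = 0.000572). Pecam1 read 29.6, 17.4 and 17.5 CPM and 46.99, 54.1 and 45.4 CPM (1.18 ± 0.25, adjusted p = 0.00533). Kdr, the VEGF receptor 2, read 4.53, 7.16 and 6.22 CPM and 12.4, 12.7 and 13.3 CPM (1.10 ± 0.24, adjusted p = 0.0061). Esm1, a proteoglycan of endothelial tip cells, read 1.51, 0.369 and 0.577 CPM and 211, 332 and 421 CPM (8.62 ± 0.62, adjusted p = 8.31e-05). Apln, apelin, read 0.378, 0.148 and 0.256 CPM and 33.8, 54.95 and 29.8 CPM (7.21 ± 0.44, adjusted p = 5.51e-05). Dll4, a Notch ligand of tip cells, fell from 11.3, 17.4 and 18.3 CPM to 6.58, 10.8 and 7.88 CPM (-0.90 ± 0.29, adjusted p = 0.0308), a call that scaling by totals ended (-0.24, adjusted p = 0.468). Nrp1 (a VEGF coreceptor) rose by 2.43 on the log2 scale. Prox1, the lymphatic and enteroendocrine factor, fell from 2.57, 4.28 and 3.4 CPM to 0, 0.0505 and 0.203 CPM (-5.27 ± 0.78, adjusted p = 0.00128). Vegfa, the main vessel growth factor, read 118, 135 and 148 CPM and 129, 153 and 102 CPM and was not called (adjusted p = 0.778). Without both sham 1 and AC 3 the endothelial falls were 4.

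Growth factor genes moved in both directions: 12 of 30 rose and 11 fell, with a median of -0.54, which was 0.12 with scaling by totals. Egfr, the receptor for epidermal growth factor, read 48.4, 45.7 and 45.2 CPM in sham and 2.76, 2.73 and 5.18 CPM in AC (-3.71 ± 0.30, adjusted p = 0.000132). Erbb3 read 403, 637 and 692 CPM and 10, 5.66 and 35.6 CPM (-5.08 ± 0.78, adjusted p = 0.00148). Fgfr2 read 259, 392 and 426 CPM and 0.395, 0.909 and 16.2 CPM (-5.95 ± 1.46, adjusted p = 0.011). Receptors were called in the other direction too. Fgfr1 read 2.57, 2.66 and 4.29 CPM and 70.4, 125 and 92.6 CPM (4.91 ± 0.33, adjusted p = 7.12e-05). Igf1r, for insulin-like growth factors, read 25.5, 19.3 and 16.5 CPM and 191, 208 and 186 CPM (3.25 ± 0.20, adjusted p = 5.43e-05). Among ligands of the EGF family Ereg, epiregulin, rose from 27.5, 21.8 and 25.5 CPM to 204, 318 and 175 CPM (3.22 ± 0.27, adjusted p = 0.000135), while Tgfa fell from 98.8, 156 and 155 CPM to 16.6, 19.6 and 12.4 CPM (-3.08 ± 0.26, adjusted p = 0.000157). Tgfb1 and Inhba, ligands of the TGF-beta family, rose by 3.13 and 5.04. Igfbp3 (a binder of insulin-like growth factors) rose by 2.56 on the log2 scale. Erbb2 (a coreceptor of the EGF family) fell by 3.21 on the log2 scale. Met, the receptor for hepatocyte growth factor, read 141, 122 and 128 CPM and 126, 118 and 139 CPM and was not called (adjusted p = 0.853).

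Genes of cell division were higher in tumours. In the replication list 18 of 20 rose (median 2.08) and in the mitosis list all 20 (median 2.53), with no call in the lower direction in either. Mcm2, of the replicative helicase, read 41.02, 12.2 and 10.4 CPM in sham and 104, 128 and 122 CPM in AC (2.48 ± 0.55, adjusted p = 0.00672). E2f1, the factor that opens S phase, read 5.74, 4.43 and 3.78 CPM and 38.7, 42.5 and 49.1 CPM (3.22 ± 0.22, adjusted p = 7.63e-05). Top2a, which untangles chromosomes, read 136, 43.2 and 45.1 CPM and 459, 376 and 452 CPM (2.52 ± 0.49, adjusted p = 0.00384). Mcm3 (a helicase subunit), Mcm4 (a helicase subunit), Cdt1 (a licensing factor) and Tk1 (thymidine kinase) rose by 2.08, 1.49, 2.44 and 1.48 on the log2 scale. Sham 1 was the highest colon library for Mcm2 and Top2a, the library that was also rich in B cell transcripts; the part of those cells was not tested. Foxm1, the mitotic transcription factor, read 12.01, 6.28 and 5.38 CPM and 137, 157 and 160.4 CPM (4.26 ± 0.34, adjusted p = 0.000123). Cenpf, of the kinetochore, read 25.99, 13.9 and 13.6 CPM and 209, 175 and 244 CPM (3.55 ± 0.32, adjusted p = 0.000174), and Mki67, the antigen Ki-67, 230.5, 69.98 and 68.5 CPM and 385, 349 and 409 CPM (1.63 ± 0.50, adjusted p = 0.025). Ccnb1 (cyclin B1) and Plk1 (polo-like kinase) rose by 2.66 and 1.39 on the log2 scale.

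Among brakes, oncogenes and tumour suppressors 8 of 20 rose and 9 fell, or 4 with scaling by totals, which turned the sign of the median from -0.32 to 0.33. Cdkn2b, an inhibitor of G1 kinases, read 41.8, 38.5 and 40.2 CPM in sham and 0.57, 0.606 and 1.37 CPM in AC (-5.56 ± 0.38, adjusted p = 7.46e-05). Cdkn2a, its neighbour, was not tested: it had 0 counts in sham and read 0.263, 0.505 and 0.0508 CPM in AC. Cdkn1a, the inhibitor p21, fell from 231, 378 and 378 CPM to 164, 149.7 and 133 CPM (-1.14 ± 0.23, adjusted p = 0.0043), and Rb1, the retinoblastoma protein, from 164, 153 and 168 CPM to 31.3, 31.5 and 43.7 CPM (-2.19 ± 0.17, adjusted p = 0.000116). Trp53, encoding p53, rose from 28.1, 19.6 and 18.8 CPM to 127, 125 and 123 CPM (2.50 ± 0.19, adjusted p = 9.86e-05). Cdkn2b, Cdkn1a and Rb1 were lower in all 3 tumours than in any colon library, and Trp53 higher. Myc read 15.9, 8.12 and 9.1 CPM and 104, 147 and 81.5 CPM (3.32 ± 0.35, adjusted p = 0.000351), Ccnd1, cyclin D1, 15.9, 27.8 and 33.5 CPM and 606, 643 and 562 CPM (4.55 ± 0.32, adjusted p = 7.55e-05). Hmga1, a chromatin protein, read 36.7, 22.4 and 21.3 CPM and 222, 253 and 228 CPM (3.13 ± 0.25, adjusted p = 0.000119). Ccnd1 shares 23.4% of its exons with another gene and its level is uncertain.

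Colonocytes burn butyrate in their mitochondria, and genes of this route were lower. All 25 tested nuclear genes of the respiratory chain fell, with a median of -2.01, and 12 of 13 mitochondrially encoded genes, with a median of -2.03. Cox5a, of cytochrome oxidase, read 233, 229.7 and 224 CPM in sham and 24.04, 28.1 and 29.1 CPM in AC (-3.08 ± 0.13, adjusted p = 2.79e-05). Uqcrc2, of complex III, read 400.0, 466 and 476 CPM and 80.2, 79.2 and 86.7 CPM (-2.45 ± 0.14, adjusted p = 5.03e-05). Sdhd, of complex II, read 482, 405 and 395 CPM and 71.99, 66.9 and 83.9 CPM (-2.52 ± 0.16, adjusted p = 6.05e-05). The tumours were even and none overlapped the colon libraries. Ndufa4 (of cytochrome oxidase), Ndufb8 (of complex I), Ndufs1 (of complex I), Cox5b (of cytochrome oxidase), mt-Nd1 (of complex I), mt-Nd2 (of complex I), mt-Nd3 (of complex I) and mt-Co2 (of cytochrome oxidase) fell by 1.65, 1.30, 1.12, 2.44, 2.35, 1.20, 2.04 and 2.85 on the log2 scale. Of the butyrate and fat list 23 of 25 fell and 2 rose, with a median of -2.92. Slc16a1, a monocarboxylate carrier, read 1020, 1347 and 1409 CPM and 318, 246 and 310.2 CPM (-2.11 ± 0.20, adjusted p = 0.000212). Acads, the short chain acyl-CoA dehydrogenase that starts butyrate oxidation, read 136, 291 and 302 CPM and 18.9, 17.7 and 21.6 CPM (-3.64 ± 0.34, adjusted p = 0.000214). Pparg, a nuclear receptor of lipids, fell from 153, 262 and 268 CPM to 1.75, 0.859 and 5.69 CPM (-6.36 ± 0.77, adjusted p = 0.000571). Hadhb (of fatty acid oxidation) and Ppargc1b (a coactivator of mitochondrial genes) fell by 3.13 and 3.00 on the log2 scale. Angptl4, an inhibitor of lipoprotein lipase, rose from 0.755, 1.33 and 0.833 CPM to 45.98, 47.3 and 21.7 CPM (5.29 ± 0.44, adjusted p = 0.000136), as did the fatty acid carrier Cd36 (2.34 ± 0.34, adjusted p = 0.00122), which macrophages and vessels also express.

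**Figure D5:**
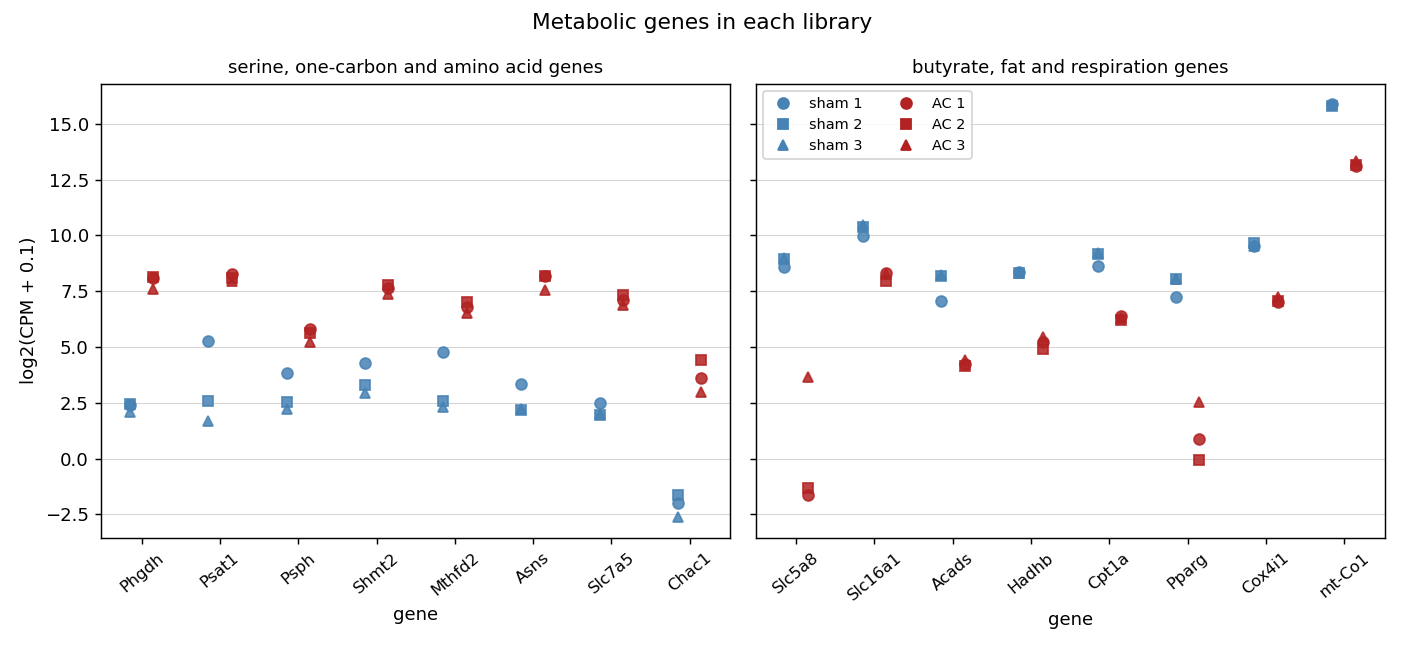
Levels of 8 serine, one-carbon and amino acid genes and 8 butyrate, fat and respiration genes (horizontal axis) in each library, as log2(CPM + 0.1) (vertical axis); blue marks are sham, red marks AC, and circle, square and triangle are libraries 1, 2 and 3. All red marks lie above the blue ones at the left and below them at the right, from Phgdh (5.66 ± 0.23, adjusted p = 2.63e-05) to mt-Co1 (-2.64).

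The amino acid list, made of targets of the stress factor ATF4 and of the transporters and enzymes that supply amino acids, rose in 21 of 24 genes, with no gene called lower and a median of 2.35. Phgdh, Psat1 and Psph make serine from glucose. Phgdh read 5.14, 5.39 and 4.17 CPM in sham and 272, 278 and 195 CPM in AC (5.66 ± 0.23, adjusted p = 2.63e-05). Psat1 read 37.9, 5.91 and 3.14 CPM and 309, 277 and 252 CPM (4.16 ± 0.97, adjusted p = 0.00896). Psph read 13.98, 5.76 and 4.55 CPM and 56.4, 49.3 and 37.5 CPM (2.56 ± 0.46, adjusted p = 0.00273). Every tumour exceeded every colon library at each step. Shmt2 and Mthfd2 pass the carbon of serine to folate in mitochondria. Shmt2 read 19.4, 9.74 and 7.56 CPM and 199.9, 223 and 168 CPM (4.01 ± 0.39, adjusted p = 0.00025). Mthfd2 read 27.1, 5.83 and 4.81 CPM and 111, 131 and 90.8 CPM (3.14 ± 0.70, adjusted p = 0.00703). Asns, asparagine synthetase, rose from 10.1, 4.43 and 4.55 CPM to 286, 293 and 189 CPM (5.34 ± 0.43, adjusted p = 0.000124). Among transporters Slc7a5, of large neutral amino acids, read 5.59, 3.84 and 3.91 CPM and 139, 164 and 119 CPM (4.98 ± 0.23, adjusted p = 3.29e-05). Slc7a1, of arginine and lysine, read 27.8, 25.2 and 22.9 CPM and 168, 212 and 156 CPM (2.82 ± 0.17, adjusted p = 5.49e-05). Chac1, which cleaves glutathione, and Trib3, a pseudokinase, are targets of strong stress. Chac1 read 0.151, 0.222 and 0.0641 CPM and 12.2, 21.01 and 7.92 CPM (6.52 ± 0.61, adjusted p = 0.000214). Trib3 read 0.831, 1.33 and 0.769 CPM and 32.3, 53.1 and 19.2 CPM (5.15 ± 0.49, adjusted p = 0.000229). AC 2 was the highest tumour and AC 3 the lowest for both. Atf4 itself rose by 1.38 ± 0.21, adjusted p = 0.00146. Slc7a11, the cystine carrier, read 37.6, 4.21 and 3.65 CPM and 20.2, 25.3 and 13.3 CPM and was not called (adjusted p = 0.733), sham 1 being the highest library of all.

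ATF4 binds with C/EBP partners to the letters TGATGNAA. These were searched in the same window on both strands, and 4 of 23 promoters of the amino acid list held them (17.4%), against 3.45% of all promoters. RefSeq promoters were found for 21 of the 24 genes. The matches lie in Asns, Chac1, Pycr1 and Slc7a11, and the stretches are printed because the first 3 of these genes rose and the last did not pass the test. The letter at N is not the same in all 4, and Slc7a11 holds 2 matches. They come from chr6:7693210-7693309 (minus strand), chr2:119350999-119351098 (plus strand), chr11:120643802-120643901 (minus strand) and chr3:50443614-50443713 (minus strand), with the matched letters in capitals.
Asns: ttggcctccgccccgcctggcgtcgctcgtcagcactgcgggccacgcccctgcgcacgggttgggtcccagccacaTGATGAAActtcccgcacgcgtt
Chac1: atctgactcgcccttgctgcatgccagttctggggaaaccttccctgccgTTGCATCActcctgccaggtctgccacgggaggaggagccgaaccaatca
Pycr1: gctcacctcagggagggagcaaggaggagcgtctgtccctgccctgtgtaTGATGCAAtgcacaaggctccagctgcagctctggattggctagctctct
Slc7a11: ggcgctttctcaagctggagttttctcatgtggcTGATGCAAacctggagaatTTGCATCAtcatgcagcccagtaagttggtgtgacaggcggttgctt
Pycr1, of proline synthesis, read 1.44, 1.03 and 1.15 CPM in sham and 8.95, 11.5 and 4.62 CPM in AC (2.78 ± 0.42, adjusted p = 0.00142).

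Glycolysis and hypoxia genes did not move as a block. Of 27 genes 19 fell and 5 rose, with a median of -0.94, and with scaling by totals 10 fell and 7 rose, with a median of -0.28. Hk2, a hexokinase, read 745, 974 and 984 CPM in sham and 100, 108 and 91.1 CPM in AC (-3.17 ± 0.18, adjusted p = 5.08e-05). Slc2a1, the glucose carrier, read 207, 396 and 392 CPM and 97.3, 117 and 88.9 CPM (-1.72 ± 0.28, adjusted p = 0.00193). Car9 and Car12, surface carbonic anhydrases, fell by 2.87 and 5.04 on the log2 scale, and Epas1, the hypoxia factor HIF-2 alpha, fell from 144, 208 and 213 CPM to 21.4, 18.4 and 16.9 CPM (-3.32 ± 0.21, adjusted p = 5.67e-05). Bnip3, a mitophagy receptor induced by hypoxia, rose from 20.6, 14.03 and 17.4 CPM to 96.3, 99.7 and 87.3 CPM (2.44 ± 0.18, adjusted p = 8.69e-05), and the glycolytic enzymes Pgam1 and Eno1 rose by 1.48 and 0.98. Hk1 (a hexokinase) and Egln3 (a prolyl hydroxylase of the hypoxia factors) fell by 0.94 and 4.16 on the log2 scale. Of 18 cholesterol genes 8 fell, 1 rose and 9 were not called; the falls were 13 and the rises 3 without both sham 1 and AC 3, and the rises 5 with scaling by totals. Hmgcs1, an early step, read 546, 477 and 485 CPM and 129.6, 113 and 156 CPM (-1.92 ± 0.17, adjusted p = 0.00017). Fdft1 (squalene synthase) fell by 1.49 on the log2 scale. Abca1, which exports cholesterol, rose from 43.6, 9.67 and 8.4 CPM to 98.9, 109 and 102 CPM (2.33 ± 0.65, adjusted p = 0.0175).

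Enzymes against oxidants and foreign compounds, which handle what the gut takes in, were mostly lower. Of the 21 NRF2 and oxidative stress genes 15 fell and 2 rose, with a median of -1.36. Nqo1, a quinone reductase that NRF2 induces, read 62.1, 94.5 and 88.3 CPM in sham and 1.32, 2.07 and 4.37 CPM in AC (-4.98 ± 0.49, adjusted p = 0.000248). Gclc, of glutathione synthesis, read 192, 318 and 336 CPM and 49.5, 70.05 and 60.9 CPM (-2.23 ± 0.26, adjusted p = 0.000505). Prdx6, a peroxiredoxin, read 3573, 3594 and 3582 CPM and 111, 135 and 155 CPM (-4.74 ± 0.19, adjusted p = 2.69e-05). Hmox1, haem oxygenase, which macrophages express too, rose from 6.2, 3.69 and 3.21 CPM to 118, 170.0 and 60.5 CPM (4.74 ± 0.48, adjusted p = 0.000298). Gpx8 (a peroxidase of the endoplasmic reticulum) rose by 4.34 on the log2 scale. Gpx2 (the gastrointestinal glutathione peroxidase) fell by 8.66 on the log2 scale. With scaling by totals the rises were 4. Of the xenobiotic list 20 of 23 fell and 3 rose, with a median of -5.79. Cyp2c55, a cytochrome P450 of colon, read 2816, 4593 and 4692 CPM and 37.9, 28.99 and 121 CPM (-6.01 ± 0.69, adjusted p = 0.000474). Abcg2, an exporter of drugs, read 311, 304 and 327 CPM and 3.38, 1.92 and 8.69 CPM (-6.07 ± 0.61, adjusted p = 0.00028). Sult1a1, a sulfotransferase, read 242, 418 and 462 CPM and 3.9, 3.74 and 10.7 CPM (-5.93 ± 0.57, adjusted p = 0.000243). Ugt1a6a (a glucuronosyltransferase) fell by 4.49 on the log2 scale. Ugt1a6a shares 50.3% of its exons with Ugt1a7c, which makes its level uncertain. Ahr, the receptor for aromatic plant and microbial compounds, rose from 22.97, 21.04 and 20.8 CPM to 69.1, 63.8 and 61.3 CPM (1.58 ± 0.13, adjusted p = 0.000124), and its target Cyp1b1 from 0.227, 0.0738 and 0.385 CPM to 2.81, 3.33 and 6.81 CPM (4.17 ± 0.64, adjusted p = 0.00153), whereas Ahrr, the repressor it induces, changed by -3.57 ± 0.57, adjusted p = 0.00172. Its best known target, Cyp1a1, was too low to test, with 0.0756, 0.443 and 0.256 CPM in sham and 0.0439, 0.0505 and 0.0508 CPM in AC.

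Stress and signalling genes were mixed. Of 18 genes of the unfolded protein and heat shock responses 8 rose and 5 fell, or 2 with scaling by totals. Hspa5, the chaperone BiP, read 534, 312 and 295 CPM in sham and 942, 1056 and 906 CPM in AC (1.35 ± 0.26, adjusted p = 0.00386), while Ern2, the stress sensor of goblet cells, fell by 4.14 on the log2 scale (adjusted p = 0.0363). Ern1 (the stress sensor IRE1), Creb3l2 (an endoplasmic reticulum stress factor of secretory cells), Atf6 (a stress sensor) and Hspd1 (a mitochondrial chaperone) rose by 1.19, 2.83, 1.73 and 1.51 on the log2 scale. Xbp1 (a factor of the unfolded protein response) and Dnajb9 (a cochaperone) fell by 0.95 and 1.04 on the log2 scale. Immediate early genes, which respond within minutes to growth factors and other stimuli, rose in 4 and fell in 7 of 16. Fos read 174, 196 and 201 CPM and 7.59, 9.6 and 8.79 CPM (-4.46 ± 0.16, adjusted p = 2.59e-05). Atf3 read 67.8, 67.2 and 72.8 CPM and 4.96, 5.91 and 3.76 CPM (-3.83 ± 0.21, adjusted p = 4.55e-05). Egr1 rose from 20.1, 14.9 and 18.1 CPM to 157, 220.0 and 227 CPM (3.51 ± 0.21, adjusted p = 5.43e-05), so the early genes did not share a direction. Fosb (an AP-1 member) rose by 1.44 on the log2 scale. Btg2 (an antiproliferative early gene) and Zfp36 (which destabilises cytokine messages) fell by 3.59 and 2.48 on the log2 scale. Fosl1, another AP-1 member, rose by 5.59 but shares 57.2% of its exons with Ccdc85b and is uncertain. Of the clock 10 of 19 genes fell and 3 rose, or 5 and 5 with scaling by totals. Npas2, a partner of the clock activator, read 19.8, 22.7 and 26.5 CPM and 0.175, 0.0505 and 0.254 CPM (-7.10 ± 0.45, adjusted p = 5.92e-05). Nfil3, a repressor of clock output, read 3.4, 2.88 and 4.36 CPM and 15.97, 20.1 and 12.9 CPM (2.20 ± 0.28, adjusted p = 0.000679). Cry1, a clock repressor, read 71.6, 54.7 and 52.5 CPM and 22.02, 25.5 and 18.4 CPM (-1.44 ± 0.20, adjusted p = 0.000909). Clock (the partner of BMAL1) rose by 0.74 on the log2 scale. Per2 (a clock repressor) fell by 0.93 on the log2 scale. Arntl (the clock activator BMAL1) was not called, with a log2 fold change of 0.22 (adjusted p = 0.262). No source used here gives the hours of collection. Cytosolic ribosomal protein and elongation factor genes rose in 13 of 19, with 1 fall and a median of 1.1. Rpl3 read 389.5, 220.2 and 203 CPM and 795, 786 and 766 CPM (1.53 ± 0.27, adjusted p = 0.00276). Rpl4 (a ribosomal protein), Rpl5 (a ribosomal protein), Rpl8 (a ribosomal protein) and Rps18 (a ribosomal protein with many processed copies) rose by 1.32, 0.90, 1.39 and 2.48 on the log2 scale. Rps2 (a ribosomal protein) fell by 0.92 on the log2 scale. Rpl5 shares 24.3% of its exons with Fam69a, which makes its level uncertain. Many ribosomal genes have processed copies in the genome, which makes their levels uncertain.

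Markers of tissues that may border a tumour were read as a check. Skeletal muscle genes were low in both groups, with 4 of 13 tested and none of these called. Acta1 (skeletal actin), Ckm (muscle creatine kinase) and Myh4 (a fast myosin) were too low to test. The keratinocyte genes Krt5 and Krt14 were at or near 0 in AC, and so were the pancreatic genes Cela2a, Cpa1 and Pnlip. Sbsn (of skin), Alb (albumin) and Apoa1 (an apolipoprotein of liver and intestine) rose by 1.68, 3.26 and 1.69 on the log2 scale. Sprr1a (of cornified cells) and Cela1 (an elastase) fell by 7.65 and 3.04 on the log2 scale. Krt1 (of skin) and Prss2 (a trypsin) were too low to test. Msln, mesothelin, a surface protein of mesothelium and of many carcinomas, rose from 12.6, 4.43 and 2.76 CPM to 219.9, 272 and 230.4 CPM (5.19 ± 0.61, adjusted p = 0.000504), whereas Upk3b, another mesothelial gene, read 0.307, 1.01 and 1.32 CPM in AC. Fabp4 (a fatty acid binder of adipocytes, vessels and macrophages) rose by 2.60 on the log2 scale. Cidec (of fat droplets) fell by 6.23 on the log2 scale. Plin4 (of fat droplets) was not called, with a log2 fold change of 1.52 (adjusted p = 0.0842). Adipoq (adiponectin) and Plin1 (of fat droplets) were too low to test. Red cell genes rose: Hbb-bs, a beta globin, read 4.91, 7.53 and 5.19 CPM and 52.7, 85.5 and 16.6 CPM (3.13 ± 0.60, adjusted p = 0.00373), with close copies that make it uncertain, and Pf4, of platelets and macrophages, 1.06, 1.03 and 0.833 CPM and 37.5, 31.4 and 16.2 CPM (4.86 ± 0.40, adjusted p = 0.000137). Alas2 (of haem synthesis in red cells) and Hbb-bt (a beta globin) rose by 4.66 and 2.88 on the log2 scale. All 7 tested genes of that list rose, or 4 without sham 1. AC 2 was the richest tumour in globin and AC 3 the poorest.

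Genes of the Y chromosome were lower in tumours. Eif2s3y, a translation factor, read 177, 126 and 130.3 CPM in sham and 6.76, 7.58 and 6.5 CPM in AC (-4.38 ± 0.20, adjusted p = 2.89e-05). Ddx3y, an RNA helicase, read 169, 103 and 99.3 CPM and 16.8, 15.2 and 17.2 CPM (-2.92 ± 0.24, adjusted p = 0.000145). Kdm5d, a histone demethylase, read 52.5, 60.2 and 58.8 CPM and 4.08, 4.45 and 6.2 CPM (-3.54 ± 0.21, adjusted p = 5.49e-05). Uty (a Y-linked demethylase homologue) fell by 3.65 on the log2 scale. Xist, the RNA of the inactive X chromosome, was at or under 0.577 CPM in all 6 libraries. Y transcripts were present in all 6 libraries, at lower levels in each tumour than in any colon library. Of the 9 Y genes tested 7 fell.

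Spread within the groups was wide for some genes that were called. Among AC tumours the widest ratios of highest to lowest library, over genes with groups that did not overlap, were those of Hnf4a, Slc26a3, Guca2a, Mep1a, Gsdmc2 and Dsp, in each of which AC 3 was the highest. Gsdmc2, a gasdermin of colon epithelium, read 0.79, 0.303 and 67.7 CPM in AC and 1453, 1983 and 2025 CPM in sham (-6.31 ± 2.09, adjusted p = 0.034). Dsp, desmoplakin, read 0.921, 0.253 and 54.3 CPM in AC and 847, 1436 and 1480 CPM in sham (-6.08 ± 2.00, adjusted p = 0.0331). Among colon libraries the widest ratios were those of Pou2af1, Apol10a, Ighg1, Lyz1, Ms4a1 and Iglc1. Pou2af1, a B cell coactivator, read 268, 17.9 and 4.68 CPM in sham and 0.614, 0.202 and 0.305 CPM in AC (-7.96 ± 1.87, adjusted p = 0.00922). Lyz1, the lysozyme of Paneth cells, read 138, 11.4 and 5.19 CPM and 1.58, 1.06 and 0.711 CPM (-5.51 ± 1.42, adjusted p = 0.0135). Apol10a, an apolipoprotein L, was the reverse, with 3.25, 134 and 143 CPM in sham. Sham 1 was the highest library for all of these genes but Apol10a.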

How the data were processed

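RNA sequencing of 3 AC tumours and 3 sham colon samples was analysed; the untreated tumour group was not used here. Libraries were made with the VAHTS Universal V6 kit from Trizol RNA, per the labels' protocols. The deposited counts are whole reads per feature, made by the authors with featureCounts 1.5.0-p3, per the submitters' processing notes; neither the aligner nor the strand setting is given in the sources used here. The deposited FPKM values (fragments scaled by gene length and library size) were used as a check. The notes name mm9, but the gene lengths implied by counts and FPKM matched the lengths of GENCODE M21 (GRCm38) to 1% in 96.2% of the 17170 genes holding 20 counts or more, so positions are those of M21. Every library held 15690038 to 19932103 counts, and intervals on counts cover counting error only (95%, exact). No pair of libraries held the same counts, and sham 2 and sham 3 were the closest pair.

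Features were filtered with filterByExpr, scaled by TMM and fitted with edgeR 4.0.16 (glmQLFit, robust, then glmQLFTest) on the 6 samples with no covariate. All 17832 features left were tested together. Standard errors were calculated back from the fold change and the F statistic. A gene with 0 counts in a group was set to a floor of 3 counts per library and its fold is given as a lower bound, and with 1 to 3 counts the ratio of pooled counts is given with its interval. Alternatives were RLE, upper-quartile and no scaling factors, other filters, DESeq2 1.42.0, limma 3.58.1 on log2(FPKM + 1) and log2(FPKM + 0.1), a stricter threshold, a 2-fold limit, a replicate block and leaving out libraries.

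The members, the 50 gene lists and the rule for named genes were chosen with earlier results of these data known. The rule took the 12 largest rises and falls by log2 fold change and the 8 largest by CPM in each direction, among called genes with a symbol that is no Gm number, Rik name or pseudogene, at least 5 CPM in the higher group and no overlap of groups. It also took the first 3 genes of each list, the 3 members (or fewer) of smallest adjusted p and the best called member against the list's median, and the 6 genes with the widest ratio among libraries of each group. Some genes taken by the rule are not reported here. Other list members were named after their values were seen. Promoters are those of RefSeq on GRCm38.p6; motifs were sought in the 250 bases before the start, on both strands. Protein sequences were not used here. Tools were R 4.3.3 and Python 3.11.15.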

Additional observations from a re-analysis of the deposited data

How the results depend on the processing

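Leaving out 1 library in turn gave 5637 to 7353 features called higher and 5261 to 7007 called lower, against 6339 and 5826 with all 6, and each group left with 2 libraries was assumed to vary like the other. The counts stayed within 1.5 times of these under each alternative but a test against a 2-fold limit, which called 4082 higher and 3843 lower. Apart from Psmb8, which changed direction, 388 tested genes are named here. Of these 367 were called, and 0 of the called ones changed direction under any alternative. Among the fits without 1 library, calls were lost most often without sham 1 (35 genes, adjusted p 0.0503 to 0.188 in edgeR): Alb, Avil, Car1, Cd74, Cdh1, Cdx2, Cldn7, Col3a1, Col6a3, Cpa3, Dmbt1, Dsp, Epcam, Ern2, Esrp1, Fgfr2, Gsdmc2, Guca2a, Gucy2c, Hbb-bs, Hbb-bt, Hnf4a, Hpgd, Krt8, Lypd8, Mep1a, Muc13, Muc3, Myh11, Myo1a, Pigr, Sbsn, Slc26a3, Tff3 and Vil1. Without sham 3 they were lost for Actg2, Apoa1, Cnn1, Col6a3, Cpa3, Des, Dll4, Dsp, Epcam, Ern2, Gsdmc2, Guca2a, Gucy2c, Hk1, Hnf4a, Hspb6, Mcm4, Mep1a, Mki67, Myh11, Ncr1, Rgs5, Rpl5, Rps2, S100a8, S100a9, Sbsn, Slc12a2, Slc26a3 and Tff3 (adjusted p 0.0509 to 0.117 in edgeR). The 23 lost without sham 2 (adjusted p 0.0534 to 0.126 in edgeR) were Actg2, Apoa1, Col6a3, Cpa3, Dll4, Dsp, Ern2, Gsdmc2, Guca2a, Hk1, Klrk1, Mcm4, Mep1a, Mki67, Myh11, Ncr1, Rgs5, Rpl5, S100a8, S100a9, Slc12a2, Slc26a3 and Tff3. Without AC 1 those of Ahnak, Apoa1, Cd74, Dll4, Dsp, Ern2, Gsdmc2, Hk1, Hspb6, Mcm4, Mep1a, Mki67, Ncr1, Ndufa4, Rgs5, Rpl5, S100a8, S100a9, Sbsn, Slc12a2, Slc26a3 and Tff3 were lost (adjusted p 0.0524 to 0.114 in edgeR). Without AC 2 those of Ahnak, Cd74, Ern2, Hk1, Hspb6, Mcm4, Mep1a, Mki67, Ndufa4, Rpl5, S100a8, S100a9, Sbsn and Tff3 were lost (adjusted p 0.0526 to 0.12 in edgeR), and without AC 3 those of Actg2, Ahnak, Cnn1, Col6a3, Cpa3, Des, Dll4, Hk1, Klrk1, Mcm4, Mki67, Myh11, Ncr1, Ndufa4, Rgs5, Rpl5 and Slc12a2 (adjusted p 0.0512 to 0.12 in edgeR). Without sham 1 and AC 3 together, an alternative chosen after seeing the data, only Alb, Col6a3 and Myh11 lost their calls among these genes. Scaling by totals ended the calls of Cd74, Cdkn1a, Dll4, Dnajb9, Ern2, Hk1, Ndufa4, Per2, Rgs5, Rps2, Tff3 and Xbp1. RLE factors ended that of Slc12a2, upper-quartile factors that of Hk1, and DESeq2 those of Ern2 and Slc12a2. A threshold of 0.01 ended 56 calls of these genes, a 2-fold limit 44, no filter on low counts 39 (adjusted p 0.0519 to 0.16 in edgeR), limma on log2(FPKM + 1) 16 and on log2(FPKM + 0.1) 11. Those lost with no filter were Abca1, Acta2, Actg2, Car1, Cdh1, Cdx2, Cldn4, Cldn7, Cnn1, Col6a3, Cpa3, Des, Dmbt1, Dsp, Epcam, Ern2, Esrp1, Fgfr2, Gsdmc2, Guca2a, Gucy2c, Hnf4a, Hpgd, Krt8, Lypd8, Lyz1, Mcm3, Mcm4, Mep1a, Muc13, Myh11, Myo1a, Pou2af1, Rgs5, S100a9, Slc12a2, Slc26a3, Tff3 and Vil1. The cause of these losses was not tested, beyond the smaller number of samples where a library was left out.

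Apart from Psmb8, which was called lower, the named genes whose direction turned were all uncalled. With scaling by totals Cd274 moved to 0.42, Ctla4 to 0.05, Itgax to 0.49, Met to 0.62, Vegfa to 0.59 and Xcr1 to 0.61. In limma on log2(FPKM + 1) the same 6 genes read 0.38, 0.19, 0.22, 0.59, 0.56 and 0.14, and on log2(FPKM + 0.1) 0.40, 0.55, 0.40, 0.62, 0.57 and 0.50. Upper-quartile factors gave Met 0.05, Vegfa 0.01 and Xcr1 0.04, and no filter on low counts gave Met 0.03 and Xcr1 0.02. Over the fits without 1 library in turn Ctla4 ran from -0.99 to 0.81, Fap from -0.90 to 1.52, Gzmb from -0.03 to 0.73, Itgax from -0.47 to 0.10, Met from -0.09 to 0.05, Pdcd1 from -0.10 to 2.60, Slc7a11 from -0.06 to 2.23, Vegfa from -0.24 to 0.10 and Xcr1 from -0.25 to 0.32. Ctla4, Gzmb and Xcr1 turned without sham 1, Slc7a11 without sham 2 or sham 3, Pdcd1 and Vegfa without sham 3, Itgax, Met and Xcr1 without AC 1, Met without AC 2, and Fap and Vegfa without AC 3. Without sham 1 and AC 3 together Ctla4 was 0.91, Fap -0.92 and Xcr1 0.33.

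The labels give both groups the numbers 1 to 3, but nothing says that a number marks a shared animal or day, and deviations of same-numbered samples correlated by 0.13, -0.02 and 0.08. With the replicate number as a block 5966 features were called higher and 5337 lower, the calls of Col6a3, Cpa3, Hk1, Ncr1, Rgs5, Rpl5 and Slc12a2 were lost, and Xcr1 turned to 0.04. With 15690038 to 19932103 counts per library, a gene with 0 counts in a group could still lie at up to 0.214 CPM in sham or 0.145 CPM in AC (3 counts per library, counting error only), and 37597 Ensembl genes were too low to test.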

Other observations

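Some regulators of embryonic development were among the genes with 0 counts in all 3 colon libraries. How many such regulators were absent from or present in both groups was not counted. Beside Irx2, the Iroquois factors Irx1 and Irx5 read 10.49, 13.94 and 9.4 CPM and 10.22, 12.98 and 9.65 CPM in the 3 AC libraries, at least 52.8-fold and 51.3-fold above the floor of 3 counts per library. Pax2, of kidney and brain, read 2.9, 4.65 and 3.3 CPM, at least 16.9-fold higher, and Pax9, of pharynx, teeth and vertebrae, 2.46, 1.92 and 4.27 CPM, at least 13.5-fold higher. All of these were present in each AC library. Irx1, Irx5, Pax2 and Pax9 were chosen after their values were seen.

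Calls were not spread evenly over the chromosomes. Of 668 genes tested on chromosome 15, 43.6% were called higher and 25.1% lower, with a median log2 fold change of 0.51. Chromosome 2 had 40.9% higher and 26.2% lower of 1288 genes, with a median of 0.37. Chromosome 11 had 27.7% higher and 39.9% lower of 1302 genes, with a median of -0.27. Some other chromosomes lay close to these, such as chromosome 18 with a median of 0.41 and chromosome 4 with -0.26. Far lower were the Y chromosome, with a median of -3.42 over 9 genes, and the mitochondrial genome, with -2.35 over 22 genes. Among lincRNA genes 42.7% of 490 were higher and 25.3% lower. These chromosomes and this gene class were singled out after their values were seen, and the unevenness was not tested.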
